A study of Mus musculus with 14 samples.

Results

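Tumours of the mouse stomach cancer model labelled TMPC were compared between growth in the stomach (orthotopic) and growth under the skin (subcutaneous). Of the 14 samples of the series, 6 entered the comparison: 3 libraries labelled orthotopic TMPC and 3 labelled subcutaneous TMPC, chosen by their columns in the table deposited for that pair of groups. The series is titled after genetic factors and factors of the microenvironment in mouse stomach tumours, so the comparison holds the labelled model constant and changes the site. Both groups carry the same label, TMPC, whose letters are not spelled out, and both came from tumours taken 2 months after transplantation, from pieces of about 1 cm3. The labels give no alleles, strain, age, number of animals or pooling, and do not describe the host. The labels do not tie the 3 replicates of a group to separate animals. The p-values measure only how far these libraries spread, and that spread may be technical. What was measured is polyadenylated RNA of the whole tissue piece: tumour cells, host stroma, blood cells and any adjoining host organ were read together.

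As background, the lining of the stomach is built from gastric units whose surface is covered by pit cells, which secrete gel-forming mucus and trefoil peptides. Deeper in the unit lie mucous neck cells, pepsinogen-making chief cells, acid-secreting parietal cells and hormone-secreting endocrine cells, and the wall beneath holds visceral smooth muscle. The space under the skin lies instead over skeletal muscle of the trunk. A tumour grown in each place meets a different set of neighbouring cells, and an RNA level in a bulk sample cannot separate fewer cells of a type from less RNA per cell.

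Library totals ran from 17351152 to 21107310 counts, and 17122 to 18363 genes had at least 1 count in a library. Levels are given as CPM, read counts scaled to 1000000 reads of the library, after TMM scaling, which corrects for a few very abundant genes, and 3 counts in a library corresponded to 0.133 to 0.174 CPM. Orthotopic replicates 1 and 2 were close to each other (Pearson r of log2 CPM across genes, which are not independent replicates, 0.979), and orthotopic replicate 3 stood apart from them (0.877 and 0.887). The subcutaneous libraries correlated at 0.935 to 0.969 among themselves, and libraries of different sites at 0.811 to 0.860. No pair of libraries agreed within sampling noise, so each counted as 1 sample. Among 10575 genes with at least 20 CPM in some library, orthotopic replicate 3 was over 4 times above both other orthotopic libraries for 287 genes and under 0.25 times both for 251. Subcutaneous replicate 1 was over 4 times above both other subcutaneous libraries for 220 genes and under 0.25 times both for 153. The genes that set orthotopic replicate 3 furthest above its group were liver genes, among them Hpx, the blood plasma haem carrier haemopexin, at 2.31, 0.786 and 4324 CPM in the orthotopic libraries. Values in each pair below are given first with all 6 libraries and second without orthotopic replicate 3.

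**Figure D1:**
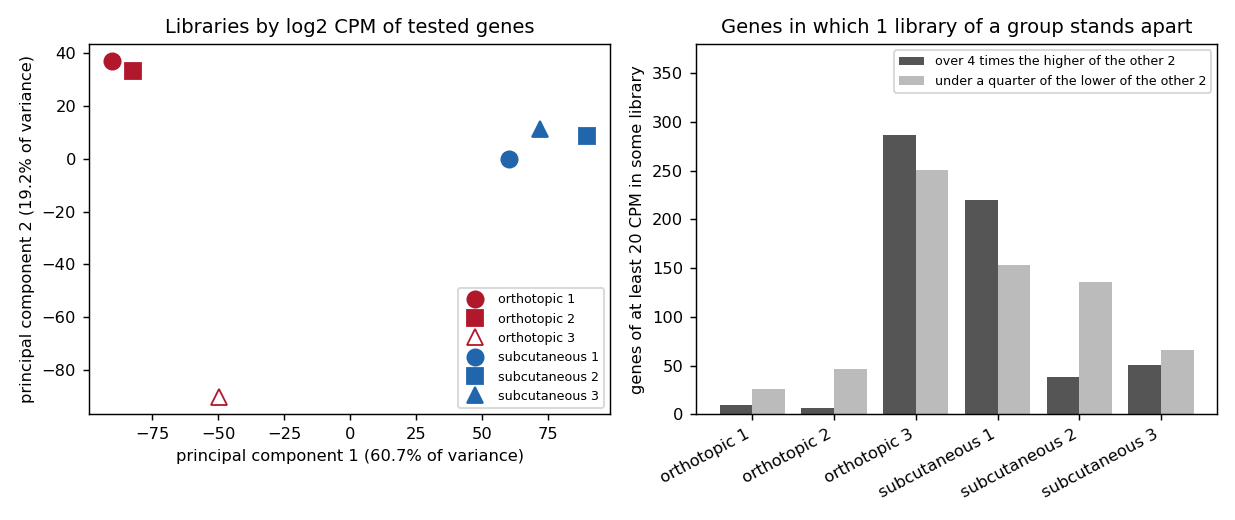
Each panel plots values by library: the position on the principal components of log2 CPM, and the number of genes over 4 times above or under 0.25 times both other libraries of the group. Orthotopic replicate 3 lies apart from replicates 1 and 2 on the second component, which holds 19.2% of the variance, while the first, with 60.7%, separates the sites.

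Of 24421 genes in the table, 15123 passed the filter on low counts and were tested with edgeR's quasi-likelihood test (Benjamini-Hochberg adjusted p under 0.05). Levels were higher in orthotopic tumours for 2118 genes and lower for 2086, together 27.8% of the genes tested, 14.0% higher and 13.8% lower. Without orthotopic replicate 3 the same test called 2591 of 15663 genes higher (16.5%) and 2198 lower (14.0%), and 3630 of the 4204 calls made with 6 libraries were made again in the same direction. The differences were unequal in size: higher genes had a median log2 difference (orthotopic minus subcutaneous) of 2.06 and 1089 of them differed by at least 4-fold, while lower genes had a median of -0.94 and 112 differed by at least 4-fold. The median over all tested genes was 0.05. Counts given below for groups of genes are to be set beside the shares of 14.0% higher and 13.8% lower. Of the higher genes, 311 had passed the filter on low counts through the orthotopic libraries alone, and of the lower genes 38 through the subcutaneous libraries alone. The number of calls varied with the library left out: leaving out orthotopic replicate 1 left 659 higher and 562 lower genes, and leaving out orthotopic replicate 2 left 288 and 99. Leaving out subcutaneous replicates 1, 2 and 3 gave 1680, 677 and 1040 higher and 1830, 971 and 1054 lower. In all 6 omissions 374 of the 4204 calls were made in the same direction, and no call changed sign in any of them. For most groups of genes, the number called is therefore given for each omission, and for each gene named as rising or falling the omissions that ended its call. With all 6 libraries DESeq2 called 3347 genes higher and 3024 lower and limma voom 3360 and 3272; the counts given for groups of genes are edgeR's unless another tool is named. Log2 differences are given ± SE, and ratios and fold bounds cover counting error only.

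Genes of gastric surface cells showed wide gaps between the sites. Gkn2 (gastrokine 2, a secreted protein of pit cells, chr6:87373357-87379497 in mm10) stood at 1675, 2327 and 1670.0 CPM in orthotopic replicates 1 to 3 and had no read in any subcutaneous library. Taking 3 counts per library as the floor, its level was at least 11758-fold higher in the orthotopic tumours. Gkn1 (gastrokine 1) had 1556, 2001 and 1362 CPM in the orthotopic libraries against 3 counts in all in the subcutaneous ones, a ratio of 30995 (95% interval 10605 to 150298). Both gastrokines thus filled all 3 orthotopic libraries at similar levels and were at or near 0 in all 3 subcutaneous ones, with no overlap. Over all tested genes, 24.2% had no overlap with the orthotopic libraries higher and 24.2% with them lower. Genes named below were in part chosen by a small adjusted p, so that their groups do not overlap is a description only. Muc5ac, the gel-forming mucin of the stomach surface, stood at 375, 1099 and 401 CPM in the orthotopic and 0.282, 0 and 0.306 CPM in the subcutaneous libraries (log2 difference 11.59 ± 0.96 and 11.82 ± 0.90, edgeR adjusted p = 0.00573 and 0.00484). Dpcr1, a mucin-like surface protein, had 161, 258 and 312 against 0.395, 0.0534 and 0.408 CPM (log2 difference 9.71 ± 0.61 and 9.48 ± 0.56, edgeR adjusted p = 0.00347 and 0.00310). Sult1c2, a sulfotransferase, had 128, 129.9 and 47.7 CPM against a single subcutaneous count. Of the 17 pit cell genes listed, 15 rose and 2 did not pass the test, against the 14.0% of all tested genes that rose. Their median log2 difference was 5.94 and stayed there with genes absent from one site at their bound, and 7 had passed the filter through the orthotopic libraries alone. Without orthotopic replicate 3, 16 rose with a median of 6.30; with orthotopic replicates 1 to 3 and then subcutaneous replicates 1 to 3 left out in turn the count was 11, 7, 16, 14, 13 and 12. Gkn2, Gkn1, Muc5ac, Dpcr1 and Sult1c2 held with any 1 library left out.

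Genes of the neck and chief cells of the gland followed the same order of sites, at lower levels in orthotopic replicate 3. Tff2, the trefoil peptide of mucous neck cells, stood at 455, 433 and 338 CPM in the orthotopic libraries, with 1 count in the subcutaneous ones. Muc6, the mucin of the gland base, had 137, 72.6 and 61.7 CPM against 0.226, 0.160 and 0 CPM (log2 difference 9.42 ± 0.74 and 9.63 ± 0.70, edgeR adjusted p = 0.00526 and 0.00484). Pgc, which encodes the pepsinogen progastricsin, had 117, 95.3 and 45.6 CPM and no subcutaneous read, at least 535-fold higher. Gif, the gastric intrinsic factor that binds vitamin B12, had 91.9, 172 and 11 CPM against 1 subcutaneous count. All 4 genes were highest in orthotopic replicate 1 or 2, and no orthotopic value overlapped a subcutaneous one. Dmbt1, a secreted scavenger glycoprotein of mucosal surfaces, had 3675, 3230.4 and 831 CPM against 0.339, 0.0534 and 2.34 CPM (log2 difference 11.44 ± 1.46 and 11.84 ± 1.24, edgeR adjusted p = 0.00905 and 0.00612). Gkn3, a gastrokine of neck cells, had 113, 75.7 and 39.2 against 0.339, 0 and 0 CPM (log2 difference 9.37 ± 1.03 and 9.68 ± 0.90, edgeR adjusted p = 0.00818 and 0.00577). Of 15 genes listed 14 were tested, 6 of them through the orthotopic libraries alone, and 7 rose and none fell, with a median log2 difference of 4.63 that the bounds did not change. Leaving out orthotopic replicate 3, 11 of 15 rose; with orthotopic replicates 1 to 3 and then subcutaneous replicates 1 to 3 left out in turn the count was 7, 6, 11, 8, 6 and 6. Tff2, Muc6, Pgc, Gif, Dmbt1 and Gkn3 held with any 1 library left out.

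**Figure D2:**
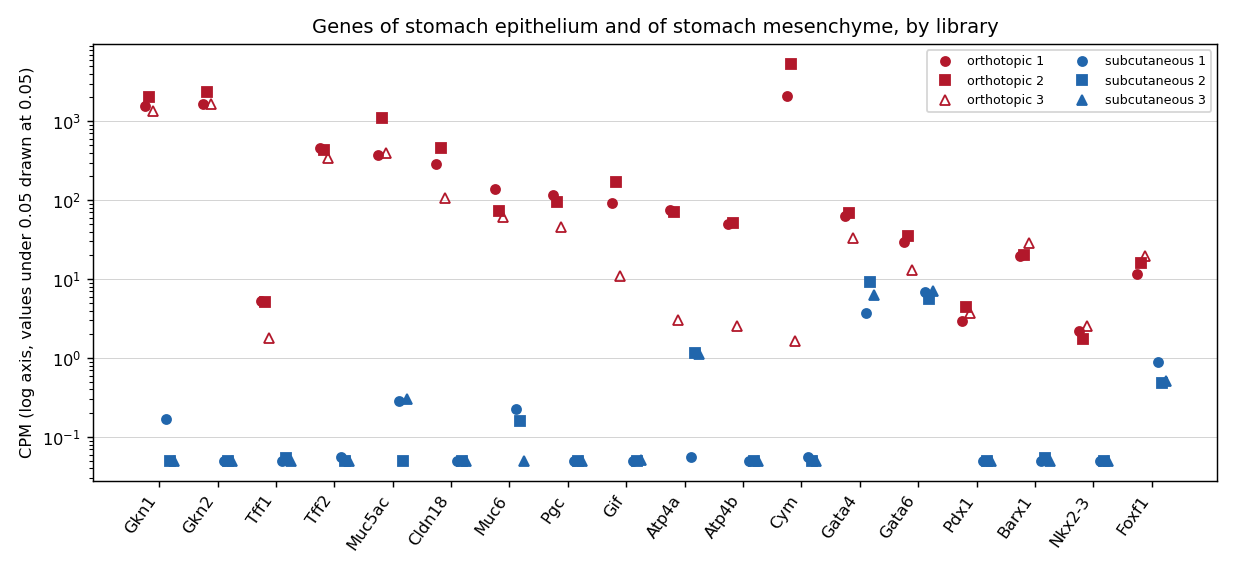
Points give the CPM of 1 library each on a log axis, for gastric genes in the 3 orthotopic and 3 subcutaneous libraries, with libraries without a read drawn at the bottom of the axis. Pit cell genes such as Gkn2 reach 1670.0 to 2327 CPM in every orthotopic library, while Atp4b of parietal cells falls to 2.55 CPM in orthotopic replicate 3.

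Genes of acid-secreting parietal cells were uneven among the orthotopic libraries. Atp4b, the beta subunit of the gastric proton pump, stood at 50.6, 51.4 and 2.55 CPM in the orthotopic libraries and had no subcutaneous read, at least 217-fold higher. Atp4a, the catalytic subunit of the pump, had 74.0, 71.6 and 3.08 CPM against 0.0564, 1.18 and 1.12 CPM (log2 difference 5.96 ± 1.42 and 6.50 ± 0.82, edgeR adjusted p = 0.0269 and 0.00748). For both subunits orthotopic replicate 3 was far below the other orthotopic libraries and still above every subcutaneous library. Slc26a9, a chloride transporter, had 14.7, 27.8 and 11.8 against 2.54, 0.641 and 1.94 CPM (log2 difference 3.40 ± 0.63 and 3.63 ± 0.63, edgeR adjusted p = 0.0152 and 0.0134), and Kcnq1, a potassium channel subunit of the acid-secreting membrane, 17.1, 20.1 and 9.70 against 3.27, 2.62 and 2.6 CPM (log2 difference 2.46 ± 0.38 and 2.70 ± 0.31, edgeR adjusted p = 0.0110 and 0.00648). Aqp4, a water channel, had 818, 509 and 20.7 CPM against 49.2, 1.71 and 16.9 CPM and passed only without orthotopic replicate 3, the library that overlapped the subcutaneous group (log2 difference 4.31 ± 1.56 and 4.87 ± 1.19, edgeR adjusted p = 0.0798 and 0.0305). Of 14 genes listed 10 were tested, 1 through the orthotopic libraries alone, and 5 rose. When orthotopic replicate 3 was left out, 9 of 12 rose; with orthotopic replicates 1 to 3 and then subcutaneous replicates 1 to 3 left out in turn the count was 2, 0, 9, 3, 2 and 2. Kcnq1 and Slc26a9 lost the call without orthotopic replicate 2. Atp4b lost the call without any 1 of orthotopic replicates 1 and 2 and subcutaneous replicates 2 and 3. Atp4a lost the call without any 1 of orthotopic replicates 1 and 2 and subcutaneous replicates 1, 2 and 3.

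Hormone and amine genes of gastric endocrine cells gave a similar spread. Ghrl, which encodes the appetite hormone ghrelin, had 277, 213 and 6.33 CPM in the orthotopic and 0.847, 0.855 and 0.560 CPM in the subcutaneous libraries (log2 difference 7.77 ± 1.45 and 8.33 ± 0.27, edgeR adjusted p = 0.0154 and 0.000927). Sst, which encodes somatostatin, had 46.3, 30.9 and 5.63 CPM and no subcutaneous read, at least 172-fold higher. Hdc, the enzyme that makes histamine, had 48.1, 53.6 and 34.2 CPM against 6.55, 1.55 and 1.38 CPM (log2 difference 3.84 ± 0.68 and 4.00 ± 0.73, edgeR adjusted p = 0.0141 and 0.0147), and is also read in mast cells and basophils. Ghrl and Sst were several-fold lower in orthotopic replicate 3 than in replicates 1 and 2, and Hdc was near the other libraries of its group. Of 20 endocrine genes listed 17 were tested, 3 through the orthotopic libraries alone; 7 rose and none fell, and without orthotopic replicate 3, 8 rose and 1 fell; with orthotopic replicates 1 to 3 and then subcutaneous replicates 1 to 3 left out in turn the count was 5, 1, 8, 8, 7 and 4. Hdc and Sst lost the call without orthotopic replicate 2. Ghrl lost the call without any 1 of orthotopic replicate 2 and subcutaneous replicates 2 and 3.

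The transcription factors that mark the gut split into those present in both sites and those read almost only in orthotopic tumours. Gata4, a zinc-finger factor of the glandular stomach, stood at 63.0, 69.3 and 33.6 CPM in the orthotopic and 3.67, 9.29 and 6.27 CPM in the subcutaneous libraries (log2 difference 3.11 ± 0.44 and 3.35 ± 0.40, edgeR adjusted p = 0.0103 and 0.00684). Gata5 had 15.9, 16.1 and 4.82 CPM and Pdx1, a factor of the gastric antrum and pancreas, 2.93, 4.44 and 3.72 CPM, each with no subcutaneous read, which makes them at least 76.3-fold and 23-fold higher. Spdef, a factor of mucous cells, had 17.9, 15.0 and 6.68 against 1.35, 1.01 and 0.917 CPM (log2 difference 3.59 ± 0.50 and 3.89 ± 0.36, edgeR adjusted p = 0.00982 and 0.00577). In contrast Sox2, a foregut factor, stood at 283, 285 and 148 CPM in the orthotopic and 112, 292 and 264 CPM in the subcutaneous libraries, with overlapping groups (log2 difference 0.10 ± 0.42 and 0.34 ± 0.41, edgeR adjusted p = 0.870 and 0.554). The subcutaneous libraries, also labelled as gastric tumour, thus held Sox2 while Gkn2, Pgc and Atp4b had no read. Of 22 listed factors 21 were tested, 4 through the orthotopic libraries alone; 9 rose and none fell, and without orthotopic replicate 3, 12 rose; with orthotopic replicates 1 to 3 and then subcutaneous replicates 1 to 3 left out in turn the count was 7, 1, 12, 9, 8 and 8. Gata4, Gata5, Pdx1 and Spdef lost the call without orthotopic replicate 2.

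Genes usually read in intestinal epithelium and in mucosal defence were also higher in the stomach. Reg3b, a secreted antibacterial lectin, had 239.8, 139.5 and 159 CPM in the orthotopic libraries and no subcutaneous read, at least 1115-fold higher. Reg3g, a lectin of the same family, had 527, 177 and 59.3 against 1.24, 0.160 and 0.204 CPM (log2 difference 8.90 ± 1.25 and 9.36 ± 0.94, edgeR adjusted p = 0.00996 and 0.00594). Clca1, a protein secreted with mucus by goblet cells, had 247, 506 and 206 against 0.339, 0.0534 and 0.255 CPM (log2 difference 10.50 ± 0.68 and 10.73 ± 0.60, edgeR adjusted p = 0.00351 and 0.00289). Each of these 3 genes was above every subcutaneous library in all 3 orthotopic libraries; both Reg3 genes and Clca1 have near-identical copies, so their levels are uncertain where reads could be split. Vil1, the microvillus protein villin, had 48.0, 67.6 and 34.7 against 3.39, 3.58 and 1.32 CPM (log2 difference 4.18 ± 0.48 and 4.38 ± 0.47, edgeR adjusted p = 0.00864 and 0.00612). Olfm4, a secreted glycoprotein of crypt cells, had 95.7, 35.3 and 19.9 against 1.35, 0.534 and 1.32 CPM (log2 difference 5.55 ± 0.76 and 5.92 ± 0.61, edgeR adjusted p = 0.00953 and 0.00612). Of 27 intestinal genes listed, 16 passed the filter on low counts; those 16 rose, 8 of them having passed the filter through the orthotopic libraries alone. Their median log2 difference was 5.48, or 5.02 at the bounds. Without orthotopic replicate 3, 17 of 20 rose; with orthotopic replicates 1 to 3 and then subcutaneous replicates 1 to 3 left out in turn the count was 8, 7, 17, 16, 10 and 8. Of 38 mucin, trefoil and secreted defence genes listed, 27 were tested, 9 through the orthotopic libraries alone, and 20 rose. In the same order of omissions 13, 11, 26, 15, 15 and 14 rose. They share Tff2, Muc5ac, Muc6, Reg3b and Clca1 with the lists above. Reg3b, Reg3g, Clca1, Vil1 and Olfm4 held with any 1 library left out.

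The 12 genes with the largest rises, taken among those of at least 5 CPM that passed the test with and without orthotopic replicate 3, were for the most part products of stomach, gut or liver epithelium. Cldn18, the tight junction protein of the gastric lining, had 286, 464 and 107 CPM and no subcutaneous read, at least 1776-fold higher. Gjb1, a gap junction protein, had 79.6, 158 and 78.0 CPM and no subcutaneous read, at least 655-fold higher. Ugt2b34, a glucuronosyltransferase, and Cyp2c65, a cytochrome P450, had no subcutaneous read either, and were at least 414-fold and 312-fold higher. These 4 genes were highest in orthotopic replicates 1 or 2 and were present in all 3 orthotopic libraries. Cym, which encodes the milk-clotting protease chymosin, differed widely within the group: it stood at 2074, 5334 and 1.63 CPM in the orthotopic libraries, with 1 subcutaneous count. Apob, the lipoprotein backbone made by liver and gut, ran opposite to Cym, with 7.20, 4.53 and 517 CPM in the orthotopic libraries and 1 subcutaneous count. The remaining 6 were Gkn2, Gkn1, Tff2, Pgc, Reg3b and Atp4b. Cldn18, Gjb1, Ugt2b34 and Cyp2c65 held with any 1 library left out. Apob lost the call without any 1 of orthotopic replicate 2 and subcutaneous replicates 1, 2 and 3. Cym lost the call without any 1 of orthotopic replicates 1 and 2 and subcutaneous replicates 1, 2 and 3.

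Transcription factors that pattern connective tissue by its place in the body moved in opposite directions. Barx1, a homeobox factor of stomach mesenchyme, stood at 19.4, 19.9 and 28.7 CPM in the orthotopic libraries, with 1 count in the subcutaneous ones, a ratio of 1245 (95% interval 223 to 49218). Foxf1, a forkhead factor of gut mesenchyme, had 11.8, 16.2 and 19.7 against 0.903, 0.481 and 0.509 CPM (log2 difference 4.65 ± 0.45 and 4.45 ± 0.46, edgeR adjusted p = 0.00755 and 0.00612). Tcf21 and Nkx2-3, factors of visceral and gut mesenchyme, had 5.38, 6.42 and 8.19 CPM and 2.18, 1.76 and 2.55 CPM and no subcutaneous read, at least 41.4-fold and 13.4-fold higher. All 4 were at least as high in orthotopic replicate 3 as in replicates 1 and 2. Tbx15, a T-box factor of trunk dermis and muscle, had 0.0888, 0.0924 and 0 CPM in the orthotopic and 2.71, 6.30 and 5.50 CPM in the subcutaneous libraries (log2 difference -6.12 ± 0.84 and -5.65 ± 0.71, edgeR adjusted p = 0.00948 and 0.00748). Twist1, a mesenchymal basic helix-loop-helix factor, had 5.15, 14.6 and 8.30 against 90.4, 58.8 and 16.2 CPM (log2 difference -2.56 ± 0.68 and -2.49 ± 0.84, edgeR adjusted p = 0.0373 and 0.0722). Foxc1 had 11.2, 7.16 and 4.35 against 17.5, 75.5 and 70.4 CPM (log2 difference -2.84 ± 0.63 and -2.58 ± 0.69, edgeR adjusted p = 0.0227 and 0.0389). The subcutaneous libraries differed among themselves for these factors: Twist1 was highest in replicate 1, and Foxc1 in replicates 2 and 3. Of 24 visceral mesenchyme factors listed 19 were tested, 4 through the orthotopic libraries alone; 8 rose and 1, Pitx1, fell (log2 difference -1.02 ± 0.28 and -0.92 ± 0.32, edgeR adjusted p = 0.0402 and 0.0773); with orthotopic replicates 1 to 3 and then subcutaneous replicates 1 to 3 left out in turn the count was 5, 3, 7, 8, 5 and 5. Of 29 trunk and skin factors listed 19 were tested, 3 through the subcutaneous libraries alone. None rose and 5 fell, against 13.8% of all tested genes, and in the same order the count was 1, 0, 4, 4, 2 and 3. Barx1, Foxf1 and Tcf21 held with any 1 library left out. Nkx2-3 and Tbx15 lost the call without orthotopic replicate 2. Foxc1 lost the call without any 1 of orthotopic replicates 1 and 2 and subcutaneous replicates 2 and 3. Pitx1 lost the call without any 1 of orthotopic replicates 1, 2 and 3 and subcutaneous replicates 2 and 3. Twist1 lost the call without any 1 of orthotopic replicates 1, 2 and 3 and subcutaneous replicates 1 and 2.

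Hox genes, which record position along the body axis, were higher in the stomach where they differed. Hoxc4 had 17.1, 22 and 9.35 CPM in the orthotopic and 2.82, 0.908 and 2.34 CPM in the subcutaneous libraries (log2 difference 2.99 ± 0.56 and 3.25 ± 0.53, edgeR adjusted p = 0.0158 and 0.0114). Hoxb3 had 6.44, 5.18 and 10.9 against 1.02, 1.60 and 1.63 CPM (log2 difference 2.40 ± 0.46 and 2.02 ± 0.43, edgeR adjusted p = 0.0166 and 0.0212). Hoxc5 had 8.57, 10.8 and 4.53 against 1.07, 0.320 and 1.38 CPM (log2 difference 3.10 ± 0.66 and 3.37 ± 0.64, edgeR adjusted p = 0.0207 and 0.0161). For each of the 3, every orthotopic library lay above every subcutaneous library. Hoxa5 separated the subcutaneous libraries instead, with 16.4, 0.694 and 1.63 CPM in replicates 1 to 3 against 12.6, 19.9 and 7.66 CPM in the orthotopic libraries, and did not pass the test (log2 difference 1.10 ± 1.11 and 1.37 ± 1.23, edgeR adjusted p = 0.483 and 0.436). Of 39 Hox genes listed 21 were tested, 5 rose and none fell. In the order of omissions given above the count was 0, 0, 8, 8, 1 and 3. Hoxc4 lost the call without any 1 of orthotopic replicates 1 and 2. Hoxb3 and Hoxc5 lost the call without any 1 of orthotopic replicates 1 and 2 and subcutaneous replicate 2.

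Smooth and skeletal muscle genes differed in opposite directions. Myh11, the myosin of smooth muscle, had 59.7, 87.2 and 203 CPM in the orthotopic and 4.97, 6.14 and 10.5 CPM in the subcutaneous libraries (log2 difference 4.01 ± 0.57 and 3.33 ± 0.38, edgeR adjusted p = 0.0100 and 0.00660). Mylk, the kinase that activates smooth muscle myosin, had 70.1, 82.2 and 135 against 12.9, 10.9 and 18.4 CPM (log2 difference 2.77 ± 0.33 and 2.42 ± 0.27, edgeR adjusted p = 0.00872 and 0.00616). Cnn1, the contractile regulator calponin, had 32.5, 53.4 and 122 against 2.71, 4.33 and 8.15 CPM (log2 difference 3.77 ± 0.65 and 3.07 ± 0.51, edgeR adjusted p = 0.0134 and 0.0120). All 3 were highest in orthotopic replicate 3, and no group overlapped the other. Of 24 smooth muscle genes listed 23 were tested and 11 rose, with a median log2 difference of 1.59 with 6 libraries and 1.04 without orthotopic replicate 3; with orthotopic replicates 1 to 3 and then subcutaneous replicates 1 to 3 left out in turn the count was 9, 2, 11, 9, 3 and 7. Broadly expressed members did not pass the test, such as Flna, the actin crosslinker filamin A (log2 difference 0.09 ± 0.33 and -0.35 ± 0.22, edgeR adjusted p = 0.860 and 0.267). Skeletal muscle genes ran the other way. Myh1, a fast skeletal myosin heavy chain (chr11:67200052-67224575 in mm10), had 0.0888, 0 and 0.0581 CPM in the orthotopic and 4.69, 15.7 and 8.10 CPM in the subcutaneous libraries (3 counts in all in the lower group, ratio 196 subcutaneous over orthotopic, 95% counting interval 66.6 to 951, edgeR adjusted p = 0.00909 and 0.00987). Myh2, another fast skeletal myosin, had no orthotopic read and 2.43, 3.42 and 1.02 CPM, at least 15.4-fold higher in the subcutaneous tumours. Ryr1, the calcium release channel of skeletal muscle, had 0.755, 2.26 and 2.03 against 10.4, 24.8 and 26.3 CPM (log2 difference -3.60 ± 0.59 and -3.77 ± 0.71, edgeR adjusted p = 0.0123 and 0.0159). Acta1, skeletal alpha actin, had 4.8, 1.99 and 0.755 against 12.8, 92.5 and 62.7 CPM (log2 difference -4.46 ± 0.95 and -4.05 ± 0.97, edgeR adjusted p = 0.0208 and 0.0287). Skeletal transcripts were lowest among the subcutaneous libraries in replicate 1 for Acta1 and Ryr1 and for the summed list, which gave 78.7, 479 and 354 CPM in subcutaneous replicates 1 to 3 and 40.8, 31.7 and 37.9 CPM in the orthotopic ones. Of 26 genes listed 24 were tested, 7 through the subcutaneous libraries alone; none rose and 15 fell, and in the same order of omissions the count was 6, 1, 17, 17, 6 and 7. Myh11, Mylk and Myh1 held with any 1 library left out. Myh2 and Ryr1 lost the call without orthotopic replicate 2. Cnn1 lost the call without any 1 of orthotopic replicate 2 and subcutaneous replicate 2. Acta1 lost the call without any 1 of orthotopic replicate 2 and subcutaneous replicates 2 and 3.

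**Figure D3:**
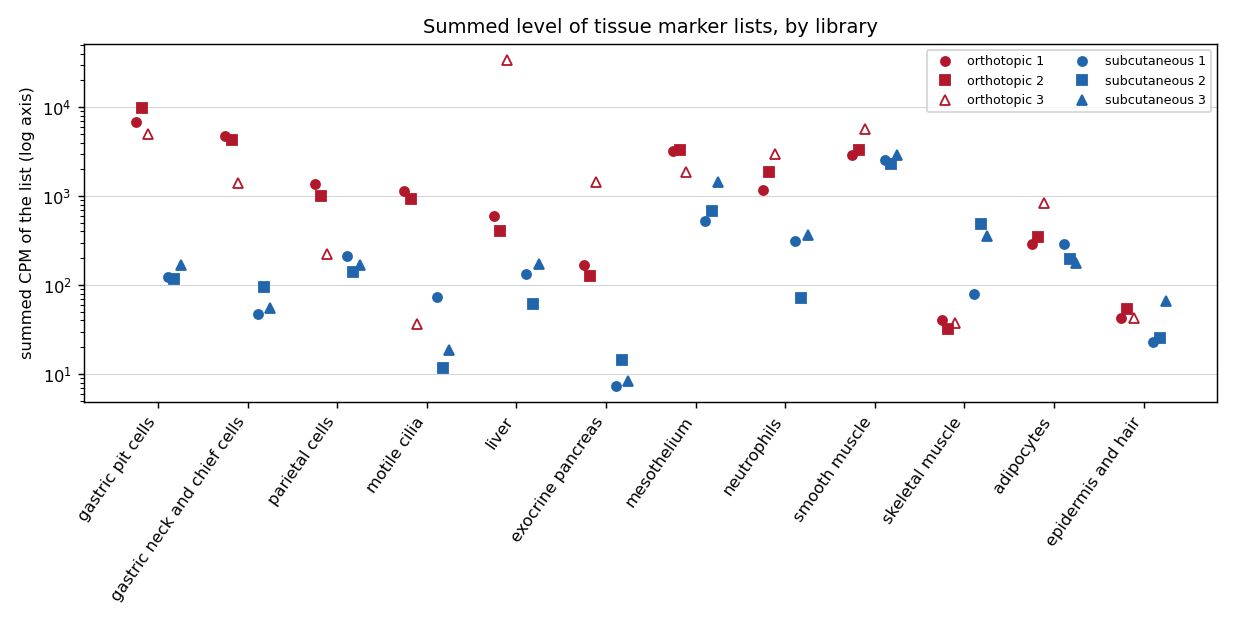
Each point is the summed CPM of a marker list in 1 library, on a log axis, for cell types of the stomach and of its neighbouring organs and tissues. Pit cell and chief cell sums are higher in all 3 orthotopic libraries, skeletal muscle sums in all 3 subcutaneous ones, and the liver sum is 33674 CPM in orthotopic replicate 3 against 595 and 410.0 CPM in replicates 1 and 2.

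Transcripts of organs next to the stomach were concentrated in orthotopic replicate 3. The 30 liver genes summed to 595, 410.0 and 33674 CPM in orthotopic replicates 1 to 3 and to 134, 60.9 and 173 CPM in the subcutaneous libraries. Acute-phase and clotting genes of the liver led: Saa1, serum amyloid A, had 1.20, 0 and 2960.3 CPM, and Fgg, the fibrinogen gamma chain, 0.888, 0.0462 and 1959 CPM, in the orthotopic libraries. Both were nearly absent from orthotopic replicates 1 and 2 and from all subcutaneous libraries. Apoa1, the main protein of high-density lipoprotein, which gut epithelium also makes, had 39.2, 38.0 and 879.8 against 0, 0.320 and 0.204 CPM (log2 difference 10.76 ± 2.01 and 7.71 ± 0.77, edgeR adjusted p = 0.0154 and 0.00592). Of the liver list 16 genes were tested, 6 through the orthotopic libraries alone, and 6 rose; limma voom called 4, and DESeq2 gave none of the 16 an adjusted p. Their median log2 difference was 9.76 with 6 libraries and 1.80 without orthotopic replicate 3, and with orthotopic replicates 1 to 3 and then subcutaneous replicates 1 to 3 left out in turn the count was 3, 1, 6, 1, 0 and 0. Exocrine pancreas genes summed to 170.0, 127 and 1448 CPM in the orthotopic and 7.40, 14.3 and 8.25 CPM in the subcutaneous libraries. Amy2a5, pancreatic amylase, had 2.49, 2.22 and 588 CPM and Ctrb1, the digestive protease chymotrypsinogen, 0.0888, 0.924 and 163 CPM in the orthotopic libraries. Clps, the lipase cofactor colipase, was more even, with 12.5, 34.4 and 28.6 CPM and 1 subcutaneous count, and Reg1, a secreted lectin of pancreas and stomach, had 123, 50.2 and 52.2 against 0.169, 0.267 and 0 CPM (log2 difference 8.97 ± 0.83 and 9.17 ± 0.81, edgeR adjusted p = 0.00738 and 0.00541). Of 27 pancreatic genes listed 10 were tested, 7 through the orthotopic libraries alone, and 6 rose. In the same order of omissions 4, 2, 7, 4, 3 and 3 rose. What part these neighbouring-organ transcripts had in the other differences of orthotopic replicate 3 was not tested. Clps and Reg1 held with any 1 library left out. Apoa1 lost the call without any 1 of subcutaneous replicates 2 and 3.

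Some genes of the membrane that covers abdominal organs were higher in orthotopic tumours with or without replicate 3. Aldh1a2, the retinoic acid-making enzyme of mesothelium and embryonic mesenchyme, had 32.0, 48.9 and 55.7 CPM in the orthotopic and 3.95, 4.81 and 8.66 CPM in the subcutaneous libraries (log2 difference 2.97 ± 0.39 and 2.79 ± 0.42, edgeR adjusted p = 0.00919 and 0.00966). Sulf1, an extracellular heparan sulfatase, had 99.4, 89.9 and 119.7 against 26.1, 27.3 and 33.3 CPM (log2 difference 1.83 ± 0.18 and 1.70 ± 0.18, edgeR adjusted p = 0.00755 and 0.00612). Wt1, the mesothelial transcription factor, had 6.09, 4.07 and 9.46 against 1.41, 1.55 and 2.29 CPM (log2 difference 1.90 ± 0.47 and 1.52 ± 0.45, edgeR adjusted p = 0.0302 and 0.0509). Msln, the surface protein mesothelin, was lowest among the orthotopic libraries in replicate 3, with 26.4, 72.8 and 6.62 against 2.37, 0.320 and 2.85 CPM (log2 difference 4.25 ± 1.11 and 4.73 ± 0.88, edgeR adjusted p = 0.0347 and 0.0156). Of 21 genes listed 14 were tested and 5 rose, among them Krt19, a keratin of simple epithelium. In the order of omissions given above the count was 2, 2, 6, 2, 2 and 4. Aldh1a2 and Sulf1 held with any 1 library left out. Msln lost the call without any 1 of orthotopic replicates 1 and 2 and subcutaneous replicates 1, 2 and 3. Wt1 lost the call in each of the 6 omissions.

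Orthotopic replicates 1 and 2 held a set of transcripts that replicate 3 lacked, among them genes of motile cilia. After Cym, the genes furthest below in replicate 3 were Cdhr3, a cadherin of ciliated airway cells, with 63.1, 60.0 and 0.348 CPM in orthotopic replicates 1 to 3, and Ccdc180, a coiled-coil protein, with 23.9, 25.7 and 0.0581 CPM. Dynlrb2 and Dnali1, dynein chains of the ciliary axoneme, had 39.8, 23.6 and 0.174 and 40.6, 33.2 and 0.290 CPM. In the subcutaneous libraries Cdhr3 stood at 3.05, 0 and 0.509 CPM and Dnali1 at 2.43, 0.214 and 0 CPM, so replicate 3 lay within the range of that group for these genes. A list of 18 motile cilia genes, chosen after these values were seen, summed to 1131, 926 and 36.1 CPM in the orthotopic and 73.0, 11.5 and 18.5 CPM in the subcutaneous libraries. In it 2 of 18 genes rose with 6 libraries and 18 of 18 without orthotopic replicate 3; with all 6 libraries DESeq2 called 16 and limma voom 5, so the count depends on the tool as well as on that library; with orthotopic replicates 1 to 3 and then subcutaneous replicates 1 to 3 left out in turn the count was 0, 0, 18, 3, 0 and 0. Dynlrb2 differed by 5.76 on the log2 scale (edgeR adjusted p = 0.0566) with 6 libraries and by 6.34 (edgeR adjusted p = 0.00948) without it.

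Of 39 interferon response genes, 35 were higher in the stomach. As background, type I interferons signal through a receptor to a transcription factor complex that holds Irf9 and binds a promoter element called ISRE to turn on antiviral genes. Irf7, the transcription factor that amplifies type I interferon, stood at 153, 176 and 106 CPM in the orthotopic and 19.9, 11.3 and 7.84 CPM in the subcutaneous libraries (log2 difference 3.48 ± 0.40 and 3.65 ± 0.40, edgeR adjusted p = 0.00864 and 0.00612). Irf9, the DNA-binding part of the complex, had 65.6, 66.5 and 54.7 against 22.6, 23.8 and 17.9 CPM (log2 difference 1.54 ± 0.18 and 1.61 ± 0.19, edgeR adjusted p = 0.00872 and 0.00685). For these regulators every orthotopic library lay above every subcutaneous library. Among the effectors, Oas3, which makes an RNA-degrading signal on sensing double-stranded RNA, had 46.1, 60.4 and 24.4 against 3.39, 2.46 and 3.77 CPM (log2 difference 3.76 ± 0.41 and 4.04 ± 0.29, edgeR adjusted p = 0.00818 and 0.00484). Parp14, an ADP-ribosyltransferase, had 160.1, 130.1 and 106 against 30.3, 18.9 and 24.0 CPM (log2 difference 2.44 ± 0.25 and 2.56 ± 0.24, edgeR adjusted p = 0.00756 and 0.00577). Isg15, the ubiquitin-like modifier, which was named after its values were seen, had 78.7, 95.8 and 44.2 against 12.2, 15.4 and 12 CPM (log2 difference 2.46 ± 0.32 and 2.71 ± 0.20, edgeR adjusted p = 0.00908 and 0.00484). In all 3 effectors orthotopic replicate 3 was the lowest of its group and still above the highest subcutaneous library. Of the 39 genes listed, all tested, 35 rose, 4 did not pass and none fell, against 14.0% of tested genes that rose. Their median log2 difference was 2.49, and 0 of them had passed the filter through the orthotopic libraries alone. Without orthotopic replicate 3, 37 rose with a median of 2.56; with orthotopic replicates 1 to 3 and then subcutaneous replicates 1 to 3 left out in turn the count was 26, 17, 37, 35, 27 and 30. Irf7, Irf9, Oas3, Parp14, Rtp4, Oasl2 and Isg15 held with any 1 library left out.

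The promoters of these genes were searched for the ISRE core, GAAA followed by 2 bases of any kind and GAAA again, on both strands over the 250 bases before the RefSeq start site (GRCm38.p6). The core was present for 13 of 27 interferon genes with a promoter entry (48.1%), against 3.46% of 27025 genes with an entry and 3.26% of 11373 tested genes with one. It was present for none of 22 Myc target genes. A match describes letters and does not show binding. The stretches of 120 bases below show the 5′ to 3′ strand of 3 of the 13 genes. The core is in capitals, joined where matches overlap. It lies singly in Oas3 and in an overlapping run in Bst2 and in Isg15. Isg15 lies at chr4:156200819-156200938 on the minus strand, Oas3 at chr5:120777660-120777779 on the minus strand and Bst2, a membrane protein that tethers budding virus, at chr8:71537567-71537686 on the minus strand.
Isg15: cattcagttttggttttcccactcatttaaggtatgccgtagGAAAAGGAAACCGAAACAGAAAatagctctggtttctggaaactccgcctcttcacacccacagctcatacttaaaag
Oas3: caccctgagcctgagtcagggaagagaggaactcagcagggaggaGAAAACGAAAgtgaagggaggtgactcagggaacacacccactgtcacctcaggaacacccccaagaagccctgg
Bst2: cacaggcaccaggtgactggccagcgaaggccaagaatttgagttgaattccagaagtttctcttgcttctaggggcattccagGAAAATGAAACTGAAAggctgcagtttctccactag
Bst2 itself stood at 131, 126 and 126 CPM in the orthotopic and 90.3, 54.4 and 49.7 CPM in the subcutaneous libraries, a smaller step than Isg15 or Oas3 (log2 difference 0.98 ± 0.24 and 0.97 ± 0.28, edgeR adjusted p = 0.0308 and 0.0484). Bst2 lost the call without any 1 of orthotopic replicates 1 and 2 and subcutaneous replicates 2 and 3.

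Many targets of interferon gamma and parts of the antigen presentation machinery also rose. Irgm1, an immunity-related GTPase, had 133, 107 and 85.3 CPM in the orthotopic and 30.8, 26.2 and 24.3 CPM in the subcutaneous libraries (log2 difference 2.00 ± 0.21 and 2.14 ± 0.19, edgeR adjusted p = 0.00756 and 0.00541). Igtp, a GTPase of the same family, had 58.5, 43.3 and 45.3 against 10.3, 9.13 and 4.18 CPM (log2 difference 2.64 ± 0.37 and 2.68 ± 0.42, edgeR adjusted p = 0.0100 and 0.0106). Psmb9, a subunit of the immunoproteasome that cuts antigens, had 40.1, 32.2 and 36.4 against 10.3, 8.01 and 7.49 CPM (log2 difference 2.08 ± 0.22 and 2.06 ± 0.26, edgeR adjusted p = 0.00805 and 0.00733). None of the 3 overlapped between the sites. Tap1, which carries peptides into the endoplasmic reticulum, had 70.7, 64.5 and 57.8 against 19.9, 16.9 and 12.2 CPM (log2 difference 1.98 ± 0.23 and 2.04 ± 0.25, edgeR adjusted p = 0.00864 and 0.00711). Tapbp, which loads them, had 240.1, 317 and 272 against 117, 106 and 126 CPM (log2 difference 1.25 ± 0.16 and 1.25 ± 0.18, edgeR adjusted p = 0.00905 and 0.00932). B2m, the light chain of MHC class I, had 831, 844 and 882 against 473, 258 and 205 CPM (log2 difference 1.45 ± 0.32 and 1.41 ± 0.37, edgeR adjusted p = 0.0228 and 0.0355). H2-Q4, a class I heavy chain with close copies, had 127, 123 and 159 against 47.0, 37.3 and 37.9 CPM (log2 difference 1.74 ± 0.17 and 1.61 ± 0.16, edgeR adjusted p = 0.00755 and 0.00612). Of 26 tested interferon gamma genes 15 rose; with orthotopic replicates 1 to 3 and then subcutaneous replicates 1 to 3 left out in turn the count was 3, 3, 14, 16, 3 and 12. Of 18 tested class I genes 11 rose, and in the same order of omissions 8, 5, 10, 11, 8 and 11; the lists share members such as Psmb9. Irgm1, Igtp, Psmb9, Tap1, Tapbp and H2-Q4 held with any 1 library left out. B2m lost the call without any 1 of orthotopic replicates 1 and 2 and subcutaneous replicates 2 and 3.

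MHC class II genes, which present antigen on professional antigen-presenting cells, varied among the subcutaneous libraries. Ctss, the protease that trims the invariant chain, had 349, 315 and 413 CPM in the orthotopic and 195, 159 and 181 CPM in the subcutaneous libraries (log2 difference 1.01 ± 0.16 and 0.89 ± 0.16, edgeR adjusted p = 0.0121 and 0.0145). Ciita, the master regulator of class II, had 16.6, 12 and 8.30 against 4.18, 2.46 and 1.12 CPM (log2 difference 2.25 ± 0.57 and 2.46 ± 0.58, edgeR adjusted p = 0.0312 and 0.0278). Cd74, the invariant chain, had 485, 398 and 293 against 195, 102 and 25.6 CPM, a wide spread among the subcutaneous libraries, and did not pass the test (log2 difference 1.87 ± 0.67 and 2.03 ± 0.74, edgeR adjusted p = 0.0774 and 0.0880). Of 11 tested class II genes 7 rose; with orthotopic replicates 1 to 3 and then subcutaneous replicates 1 to 3 left out in turn the count was 1, 0, 6, 10, 1 and 2. Ctss lost the call without orthotopic replicate 2. Ciita lost the call without any 1 of orthotopic replicates 1 and 2 and subcutaneous replicates 2 and 3.

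Complement genes, which encode a cascade of blood and tissue proteins that tags and lyses cells, were higher among both activators and inhibitors. Cfi, the protease that inactivates C3b and C4b (chr3:129835884-129875332 in mm10), had 173, 89.4 and 126 CPM in the orthotopic and 0.960, 0.855 and 1.07 CPM in the subcutaneous libraries (log2 difference 7.06 ± 0.34 and 7.07 ± 0.37, edgeR adjusted p = 0.00223 and 0.00256). Cd55, a membrane inhibitor of the C3 convertase, had 60.0, 52.9 and 33.4 against 4.23, 6.36 and 2.29 CPM (log2 difference 3.50 ± 0.45 and 3.70 ± 0.44, edgeR adjusted p = 0.00905 and 0.00682). Cd59a, which blocks the lytic pore, had 28.1, 30.9 and 31.4 against 3.22, 3.58 and 7.69 CPM (log2 difference 2.64 ± 0.39 and 2.6 ± 0.44, edgeR adjusted p = 0.0106 and 0.0127). Each of these inhibitors was above every subcutaneous library in all 3 orthotopic ones. C1s1, an activating protease, was highest in orthotopic replicate 3, with 89.2, 86.1 and 228 against 17.7, 27.6 and 17.1 CPM (log2 difference 2.69 ± 0.46 and 2.06 ± 0.26, edgeR adjusted p = 0.0131 and 0.00730). C3, the central component, which liver makes in bulk, had 385, 256 and 4085 against 95.1, 110.3 and 50.9 CPM (log2 difference 4.20 ± 1.17 and 1.90 ± 0.36, edgeR adjusted p = 0.0412 and 0.0164). Of 30 genes listed 24 were tested and 11 rose, with a median of 1.80 with 6 libraries and 1.04 without orthotopic replicate 3, the library with 33674 CPM of liver transcripts; with orthotopic replicates 1 to 3 and then subcutaneous replicates 1 to 3 left out in turn the count was 6, 4, 10, 7, 4 and 6. Cfi, Cd55 and C1s1 held with any 1 library left out. Cd59a lost the call without orthotopic replicate 2. C3 lost the call without any 1 of orthotopic replicates 1 and 2 and subcutaneous replicates 1, 2 and 3.

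Among cytokines, Il33, an alarm cytokine of barrier tissues, had 92.5, 91.0 and 88.9 CPM in the orthotopic and 13.3, 6.62 and 4.79 CPM in the subcutaneous libraries (log2 difference 3.47 ± 0.40 and 3.47 ± 0.44, edgeR adjusted p = 0.00864 and 0.00759). The orthotopic libraries were within a few percent of each other for it. Tnfsf10, the death ligand TRAIL, had 43.2, 46.6 and 30.9 against 5.02, 4.91 and 14.2 CPM (log2 difference 2.32 ± 0.48 and 2.47 ± 0.52, edgeR adjusted p = 0.0195 and 0.0206). Il1b, interleukin 1 beta, was highest in orthotopic replicate 3, with 28.4, 44.3 and 207 against 10.8, 3.53 and 8.20 CPM (log2 difference 3.63 ± 0.88 and 2.26 ± 0.50, edgeR adjusted p = 0.0282 and 0.0231). Of 29 tested cytokine and receptor genes 12 rose and none fell; with orthotopic replicates 1 to 3 and then subcutaneous replicates 1 to 3 left out in turn the count was 3, 1, 10, 4, 1 and 3. Among chemokines, Ccl11 and Ccl24, which attract eosinophils, had 34.5, 44.8 and 92.2 and 3.29, 1.16 and 2.84 CPM in the orthotopic and 4.46, 5.29 and 0.968 and 0.113, 0.160 and 0.204 CPM in the subcutaneous libraries (log2 difference 4.00 ± 0.71 and 3.46 ± 0.67, edgeR adjusted p = 0.0143 and 0.0169, and log2 difference 3.87 ± 0.61 and 3.74 ± 0.69, edgeR adjusted p = 0.0114 and 0.0152). Cxcl16, a membrane-bound chemokine, had 90.6, 104 and 147 against 40.2, 30.3 and 44.9 CPM (log2 difference 1.57 ± 0.24 and 1.33 ± 0.21, edgeR adjusted p = 0.0109 and 0.0110). Of 31 tested chemokine genes, 3 through the orthotopic libraries alone, 7 rose and none fell. In the same order of omissions 4, 1, 8, 6, 6 and 5 rose. Il33 and Ccl24 held with any 1 library left out. Ccl11 and Cxcl16 lost the call without orthotopic replicate 2. Tnfsf10 lost the call without any 1 of orthotopic replicates 1 and 2 and subcutaneous replicate 2. Il1b lost the call without any 1 of orthotopic replicate 2 and subcutaneous replicates 1, 2 and 3.

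**Figure D4:**
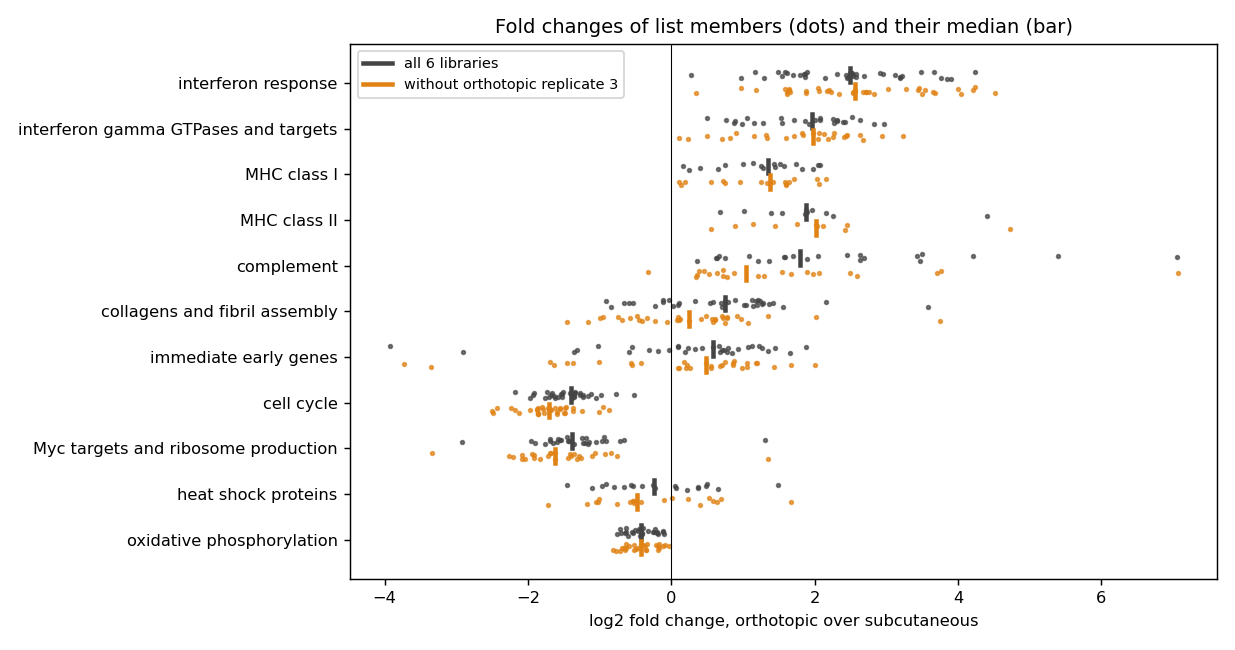
Each dot is the log2 difference (orthotopic minus subcutaneous) of 1 tested gene and each bar the median over the tested genes of a list, in black with 6 libraries and in orange without orthotopic replicate 3. Interferon genes have medians of 2.49 and 2.56 and cell cycle genes of -1.39 and -1.70. The complement median drops from 1.80 to 1.04 when that library is left out.

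Markers of the immune cells themselves passed the test in fewer cases than the interferon genes. For macrophages, Cd14, the co-receptor for bacterial lipopolysaccharide, had 109, 116 and 223 CPM in the orthotopic and 33.5, 22 and 47.6 CPM in the subcutaneous libraries (log2 difference 2.12 ± 0.40 and 1.70 ± 0.32, edgeR adjusted p = 0.0156 and 0.0161), and Csf1r, the receptor that sustains them, 97.0, 98.7 and 214 against 62.4, 41.4 and 45.1 CPM (log2 difference 1.46 ± 0.36 and 0.97 ± 0.21, edgeR adjusted p = 0.0299 and 0.0234). Lyz2, lysozyme of myeloid cells, did not pass the test, with 1013, 1141 and 1132 against 935, 456 and 559 CPM (log2 difference 0.75 ± 0.29 and 0.72 ± 0.33, edgeR adjusted p = 0.0907 and 0.151). Of 30 tested macrophage genes 5 rose and 1 fell; with orthotopic replicates 1 to 3 and then subcutaneous replicates 1 to 3 left out in turn the count was 1, 0, 4, 4, 1 and 2. Eosinophil receptors were read almost only in the stomach. Ccr3, the receptor for Ccl11, had 2.80, 3.37 and 5.63 CPM against 2 subcutaneous counts, a ratio of 106 (95% interval 29.1 to 884). Il5ra, the interleukin 5 receptor, had 0.533, 0.647 and 1.39 CPM and no subcutaneous read, at least 5.33-fold higher. Siglecf, a lectin of eosinophils, had 10.3, 3.65 and 2.44 against 0.452, 0.107 and 0.255 CPM (log2 difference 4.31 ± 0.83 and 4.65 ± 0.77, edgeR adjusted p = 0.0166 and 0.0119). Of 13 tested mast cell and eosinophil genes, 3 through the orthotopic libraries alone, 4 rose. In the same order of omissions 2, 1, 4, 8, 3 and 3 rose. Ccr3 held with any 1 library left out. Cd14 lost the call without orthotopic replicate 2. Il5ra lost the call without any 1 of orthotopic replicates 1 and 2. Csf1r and Siglecf lost the call without any 1 of orthotopic replicates 1 and 2 and subcutaneous replicates 2 and 3.

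Neutrophil genes differed in where they were high. S100a9, a calcium-binding protein of neutrophils, had 5.46, 3.28 and 411 CPM in the orthotopic and 3.84, 2.14 and 13.1 CPM in the subcutaneous libraries and did not pass the test (log2 difference 4.46 ± 1.96 and -0.55 ± 0.83, edgeR adjusted p = 0.129 and 0.645). Retnlg, a neutrophil granule protein, had 11.7, 11.7 and 47.3 against 0.226, 0.481 and 1.63 CPM (log2 difference 4.90 ± 0.98 and 3.88 ± 0.80, edgeR adjusted p = 0.0181 and 0.0200). Both were highest in orthotopic replicate 3, whereas Ltf, the iron-binding lactoferrin that glandular epithelium also makes, was lowest there, with 1021, 1642 and 269 against 152, 6.20 and 136 CPM, and did not pass the test (log2 difference 3.31 ± 1.18 and 3.75 ± 1.15, edgeR adjusted p = 0.0766 and 0.0561). The list's median was 3.26 with 6 libraries and -0.09 without that library; of 18 tested genes 3 rose, and with orthotopic replicates 1 to 3 and then subcutaneous replicates 1 to 3 left out in turn the count was 3, 0, 3, 2, 1 and 2. No T cell gene of 10 tested passed edgeR's adjusted threshold; at an unadjusted p under 0.05 there were 2 higher and 0 lower, DESeq2 called 5 higher and 0 lower, and limma voom 1 and 0. Thy1, read in T cells and fibroblasts, was highest in orthotopic replicate 3, with 17.3, 20.1 and 101 against 19.8, 38.6 and 31.9 CPM (log2 difference 0.62 ± 0.71 and -0.70 ± 0.33, edgeR adjusted p = 0.539 and 0.162). Il18rap, an interleukin 18 receptor chain of natural killer and T cells, had 16.3, 12 and 23.7 against 2.71, 0.801 and 3.11 CPM (log2 difference 2.97 ± 0.59 and 2.67 ± 0.61, edgeR adjusted p = 0.0176 and 0.0253). Of 9 tested cytotoxic and natural killer cell genes 3 rose, of 7 tested B and plasma cell genes 3, and of 17 tested dendritic cell genes 5 rose and 1 fell. Of the tested B and plasma cell genes 2, and of the dendritic cell genes 2, had passed the filter through the orthotopic libraries alone. In the same order of omissions the higher counts were 0, 0, 2, 2, 1 and 1 for cytotoxic and natural killer cells, 0, 0, 2, 0, 1 and 0 for B and plasma cells and 0, 0, 7, 8, 0 and 1 for dendritic cells. Retnlg lost the call without any 1 of orthotopic replicate 2 and subcutaneous replicate 2. Il18rap lost the call without any 1 of orthotopic replicates 1 and 2.

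In the stroma, Dcn, the small collagen-binding proteoglycan decorin, had 317, 398 and 494 CPM in the orthotopic and 51.7, 65.6 and 24.4 CPM in the subcutaneous libraries (log2 difference 3.09 ± 0.40 and 2.91 ± 0.42, edgeR adjusted p = 0.00909 and 0.00908). Lum, the related lumican, had 148, 183 and 222 against 21.5, 60.5 and 21.8 CPM (log2 difference 2.41 ± 0.46 and 2.25 ± 0.50, edgeR adjusted p = 0.0161 and 0.0234). The fibrillar collagens did not pass the test: Col1a1 had 1803, 1985 and 5047 against 1215, 1620.2 and 1201 CPM (log2 difference 1.13 ± 0.43 and 0.48 ± 0.22, edgeR adjusted p = 0.0933 and 0.142), and Col3a1 2386, 2695 and 8326 against 1805, 2096 and 1136 CPM (log2 difference 1.41 ± 0.54 and 0.59 ± 0.30, edgeR adjusted p = 0.0939 and 0.186). Orthotopic replicate 3 was at least 2 times above both other orthotopic libraries for both. Of 29 tested fibroblast genes 5 rose, with a median of 0.79 and, without orthotopic replicate 3, 0.40; with orthotopic replicates 1 to 3 and then subcutaneous replicates 1 to 3 left out in turn the count was 3, 1, 6, 5, 2 and 1. Of 35 tested collagen and fibril assembly genes 5 rose with edgeR, where DESeq2 called 12 and limma voom 11, and in the same order of omissions 0, 0, 4, 3, 0 and 1. Genes of pericytes, the contractile cells of small vessels, rose in part. Kcnj8 and Abcc9, the subunits of their potassium channel, had 34.4, 30.3 and 67.5 and 70.5, 61.7 and 88.9 CPM in the orthotopic and 4.8, 5.82 and 5.65 and 15.4, 13.9 and 11.6 CPM in the subcutaneous libraries (log2 difference 3.02 ± 0.37 and 2.56 ± 0.24, edgeR adjusted p = 0.00872 and 0.00577, and log2 difference 2.43 ± 0.21 and 2.26 ± 0.20, edgeR adjusted p = 0.00650 and 0.00560). Of 13 tested pericyte genes 4 rose, and in the same order 2, 2, 3, 3, 3 and 2. For endothelium 4 of 28 tested genes rose with edgeR (14.3%), where DESeq2 called 13 and limma voom 6. The endothelial median was 1.11 and, without orthotopic replicate 3, 0.62. In the same order 1, 0, 3, 3, 0 and 0 rose. Kdr, the main receptor for vascular growth factor, had 40.4, 44.1 and 91.1 against 27.4, 21 and 13.4 CPM (log2 difference 1.5 ± 0.41 and 1.02 ± 0.32, edgeR adjusted p = 0.0392 and 0.0599). No lymphatic endothelial gene of 11 tested passed with edgeR, where 5 were higher at an unadjusted p under 0.05; DESeq2 called 5 higher and limma voom 0. Dcn, Kcnj8 and Abcc9 held with any 1 library left out. Lum lost the call without any 1 of orthotopic replicate 2 and subcutaneous replicate 3. Mcam and Kdr lost the call without any 1 of orthotopic replicates 1, 2 and 3 and subcutaneous replicates 2 and 3.

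Several receptors and anchors for the matrix rose. Itga1, the collagen-binding integrin alpha 1 chain, had 48.8, 45.1 and 60.8 CPM in the orthotopic and 15.7, 11.7 and 12.3 CPM in the subcutaneous libraries (log2 difference 1.96 ± 0.21 and 1.81 ± 0.22, edgeR adjusted p = 0.00818 and 0.00711). Itga3, a laminin-binding chain, had 175, 158 and 175 against 49.0, 41.9 and 69.3 CPM (log2 difference 1.66 ± 0.21 and 1.63 ± 0.24, edgeR adjusted p = 0.00905 and 0.00948). Lama1, a laminin chain of basement membranes, had 15.3, 23.1 and 24.4 against 3.89, 4.11 and 3.57 CPM (log2 difference 2.44 ± 0.30 and 2.30 ± 0.32, edgeR adjusted p = 0.00872 and 0.00860). All 3 separated the sites in every library. Fn1, fibronectin, did not, with 1931, 1619 and 4208 against 1531, 2494 and 1504 CPM (log2 difference 0.49 ± 0.42 and -0.06 ± 0.29, edgeR adjusted p = 0.410 and 0.885). Of 37 tested laminin, integrin and matrix glycoprotein genes 8 rose; with orthotopic replicates 1 to 3 and then subcutaneous replicates 1 to 3 left out in turn the count was 6, 3, 8, 8, 4 and 9. Mmp15, a membrane-bound matrix protease, had 389, 306 and 183 against 93.1, 71.5 and 71.2 CPM (log2 difference 1.90 ± 0.30 and 2.14 ± 0.20, edgeR adjusted p = 0.0112 and 0.00577), and Mmp2, a gelatinase, 299, 370.0 and 517 against 181, 178 and 139 CPM (log2 difference 1.25 ± 0.24 and 1.0 ± 0.19, edgeR adjusted p = 0.0164 and 0.0164). Of 35 tested protease and inhibitor genes 9 rose, and in the same order of omissions 3, 0, 12, 5, 1 and 3. Itga1, Itga3 and Lama1 held with any 1 library left out. Mmp15 lost the call without orthotopic replicate 2. Mmp2 lost the call without any 1 of orthotopic replicate 2 and subcutaneous replicates 2 and 3.

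Genes of dividing cells were lower in the stomach. Kif11, the motor that separates spindle poles (chr19:37376403-37421859 in mm10), stood at 54.4, 63.4 and 78.2 CPM in the orthotopic and 224, 258 and 285 CPM in the subcutaneous libraries (log2 difference -1.97 ± 0.19 and -2.13 ± 0.19, edgeR adjusted p = 0.00755 and 0.00541). Cdk1, the kinase that starts mitosis, had 68.5, 56.2 and 83.4 against 198, 176 and 173 CPM (log2 difference -1.39 ± 0.18 and -1.56 ± 0.17, edgeR adjusted p = 0.00911 and 0.00612). Cdc20, an activator of the anaphase-promoting complex, had 54.8, 53.4 and 65.4 against 161, 169 and 188 CPM (log2 difference -1.58 ± 0.15 and -1.69 ± 0.15, edgeR adjusted p = 0.00738 and 0.00560). In each of these 3 the highest orthotopic library was well under the lowest subcutaneous one, and orthotopic replicate 3 was the nearest to it. Mki67, the proliferation antigen Ki-67, had 176, 178 and 277 against 473, 524 and 482 CPM (log2 difference -1.23 ± 0.22 and -1.48 ± 0.16, edgeR adjusted p = 0.0141 and 0.00612). Top2a, the topoisomerase of dividing cells, had 189, 183 and 308 against 647, 708 and 579 CPM (log2 difference -1.51 ± 0.25 and -1.80 ± 0.18, edgeR adjusted p = 0.0121 and 0.00588), and Pcna, the sliding clamp of replication, 102, 149.9 and 184 against 355, 319 and 297 CPM (log2 difference -1.16 ± 0.24 and -1.37 ± 0.22, edgeR adjusted p = 0.0185 and 0.0115). Of the 35 genes listed, all tested, 32 fell, 3 did not pass and none rose, against 13.8% of tested genes that fell. The median log2 difference was -1.39, and without orthotopic replicate 3 it was -1.70 with 34 lower; with orthotopic replicates 1 to 3 and then subcutaneous replicates 1 to 3 left out in turn the count was 23, 6, 34, 29, 27 and 27. Kif11, Cdk1, Cdc20, Cenpa and Cenpf held with any 1 library left out. Top2a and Pcna lost the call without orthotopic replicate 2. Mki67 lost the call without any 1 of orthotopic replicates 1 and 2.

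Myc, the transcription factor that drives growth and ribosome production, fell. Its gene (chr15:61985391-61990374 in mm10) stood at 70.4, 96.3 and 168 CPM in orthotopic replicates 1 to 3 and at 843, 783 and 893 CPM in subcutaneous replicates 1 to 3 (log2 difference -2.91 ± 0.34 and -3.34 ± 0.23, edgeR adjusted p = 0.00872 and 0.00484). The subcutaneous libraries were even, and orthotopic replicate 3 was the highest of its group. The labels do not say whether Myc is an introduced or altered gene in TMPC, and counts of the endogenous gene and of a transgene with the same coding sequence could not be separated here. Genes known as Myc targets were lower as well. Nolc1, a nucleolar chaperone, had 64.5, 89.4 and 119.7 against 354, 306 and 401 CPM (log2 difference -1.96 ± 0.26 and -2.21 ± 0.23, edgeR adjusted p = 0.00919 and 0.00612). Bop1, a ribosome assembly factor, had 52.4, 61.8 and 65.4 against 136, 139.6 and 132 CPM (log2 difference -1.18 ± 0.14 and -1.26 ± 0.15, edgeR adjusted p = 0.00866 and 0.00685). Fbl, the RNA methyltransferase fibrillarin, had 83.9, 111 and 134 against 295, 286 and 316 CPM (log2 difference -1.45 ± 0.20 and -1.63 ± 0.19, edgeR adjusted p = 0.00948 and 0.00666). Ncl, nucleolin, had 573, 691 and 1084 against 1856, 1706 and 2436 CPM (log2 difference -1.35 ± 0.29 and -1.67 ± 0.25, edgeR adjusted p = 0.0216 and 0.00963). Ldha, lactate dehydrogenase A, overlapped between the sites and did not pass the test (log2 difference -0.72 ± 0.32 and -0.93 ± 0.34, edgeR adjusted p = 0.130 and 0.0894). Of the 28 genes listed, Myc among them, all were tested; 25 fell, 1 rose and 2 did not pass, with a median of -1.39 and, without orthotopic replicate 3, -1.62 with 26 lower. For the lower genes, with orthotopic replicates 1 to 3 and then subcutaneous replicates 1 to 3 left out in turn the count was 16, 2, 26, 23, 19 and 16. Myc and Bop1 held with any 1 library left out. Nolc1 and Fbl lost the call without orthotopic replicate 2. Ncl lost the call without any 1 of orthotopic replicates 1 and 2 and subcutaneous replicate 3.

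The E-box CACGTG, the sequence that Myc and its partner Max are known to bind, was searched in the same 250 bases; it reads the same on both strands. It was present for 5 of 22 genes of the Myc list with a promoter entry (22.7%), against 9.49% of the tested genes with one and 6.86% of all genes with one, and for none of 27 interferon genes. Of the 5, Nme1, a nucleoside diphosphate kinase, and Hspd1, the mitochondrial chaperonin Hsp60, are shown as the lower-side counterpart of the interferon promoters, in the same layout with the E-box in capitals. Nme1 lies at chr11:93968273-93968392 on the minus strand and Hspd1 at chr1:55088244-55088363 on the minus strand.
Nme1: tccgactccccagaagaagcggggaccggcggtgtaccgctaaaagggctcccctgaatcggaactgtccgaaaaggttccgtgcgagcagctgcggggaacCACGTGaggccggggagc
Hspd1: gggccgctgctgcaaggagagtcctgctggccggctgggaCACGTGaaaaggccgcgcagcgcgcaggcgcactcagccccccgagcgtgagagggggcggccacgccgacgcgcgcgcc
Nme1 had 128, 112 and 122 CPM in the orthotopic and 223, 256 and 269.7 CPM in the subcutaneous libraries (log2 difference -1.05 ± 0.14 and -1.07 ± 0.17, edgeR adjusted p = 0.00920 and 0.0106). Hspd1 had 287, 393 and 543 against 1405, 863 and 1077 CPM (log2 difference -1.45 ± 0.30 and -1.72 ± 0.29, edgeR adjusted p = 0.0195 and 0.0125). Both were lower in every orthotopic library. Nme1 lost the call without orthotopic replicate 2. Hspd1 lost the call without any 1 of orthotopic replicates 1 and 2 and subcutaneous replicate 3.

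Of the list of amino acid metabolism and stress response, 2 enzymes that handle serine and 1 transporter are shown first. Shmt2, the mitochondrial enzyme that splits serine, had 104, 88.4 and 119 CPM in the orthotopic and 277, 324 and 394 CPM in the subcutaneous libraries (log2 difference -1.68 ± 0.20 and -1.80 ± 0.22, edgeR adjusted p = 0.00868 and 0.00702). Phgdh, the first enzyme of serine synthesis, had 51.8, 72.2 and 125 against 374, 388 and 386 CPM (log2 difference -2.21 ± 0.33 and -2.64 ± 0.21, edgeR adjusted p = 0.0106 and 0.00484). Slc7a5, a transporter of large neutral amino acids, had 72.6, 53.6 and 84.7 against 219, 182 and 174 CPM (log2 difference -1.45 ± 0.21 and -1.61 ± 0.21, edgeR adjusted p = 0.0103 and 0.00784). None of the 3 overlapped between sites. Nqo1, a quinone reductase of the antioxidant response, ran the other way, with 78.4, 156 and 84.4 against 12.3, 26.5 and 11.2 CPM (log2 difference 2.67 ± 0.45 and 2.80 ± 0.48, edgeR adjusted p = 0.0128 and 0.0130). Of 32 tested amino acid and stress response genes 8 fell and 4 rose; for the lower ones with orthotopic replicates 1 to 3 and then subcutaneous replicates 1 to 3 left out in turn the count was 6, 2, 9, 9, 8 and 8. Shmt2 and Slc7a5 held with any 1 library left out. Phgdh and Nqo1 lost the call without orthotopic replicate 2.

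Other metabolic groups moved in part. Epas1, the hypoxia-inducible factor 2 alpha that is abundant in endothelium and some epithelia, had 265, 213 and 155 CPM in the orthotopic and 32.6, 21.6 and 25.5 CPM in the subcutaneous libraries (log2 difference 2.99 ± 0.27 and 3.16 ± 0.23, edgeR adjusted p = 0.00650 and 0.00484). Pkm, pyruvate kinase, had 1278, 1592 and 2264 against 2967, 3712 and 5229 CPM (log2 difference -1.21 ± 0.32 and -1.48 ± 0.32, edgeR adjusted p = 0.0344 and 0.0214). Of 29 tested hypoxia and glycolysis genes 3 rose and 5 fell; for the lower ones with orthotopic replicates 1 to 3 and then subcutaneous replicates 1 to 3 left out in turn the count was 0, 0, 4, 8, 0 and 0. Msmo1, an enzyme of cholesterol synthesis, had 137, 133 and 130.4 against 54.5, 48.4 and 57.9 CPM (log2 difference 1.31 ± 0.13 and 1.32 ± 0.15, edgeR adjusted p = 0.00755 and 0.00618), and Acaca, which makes the building block of fatty acids, 71.9, 86.2 and 86.1 against 129, 164 and 179 CPM (log2 difference -0.95 ± 0.17 and -1.0 ± 0.20, edgeR adjusted p = 0.0146 and 0.0184). Of 28 tested cholesterol and lipid genes 4 rose and 3 fell; in the same order of omissions 1, 1, 2, 2, 1 and 2 rose and 0, 0, 3, 2, 1 and 1 fell. Of 27 tested oxidative phosphorylation genes 6 fell and none rose with edgeR, where DESeq2 called 12 and limma voom 12 lower, and in the same order 0, 0, 2, 8, 0 and 1 fell; Ndufv1, a subunit of complex I, had 84.3, 89.5 and 84.9 against 122, 142 and 162 CPM (log2 difference -0.72 ± 0.15 and -0.72 ± 0.17, edgeR adjusted p = 0.0191 and 0.0296). Of 20 tested heat shock genes 4 fell and 1, Hspb1, rose (log2 difference 1.49 ± 0.35 and 1.66 ± 0.36, edgeR adjusted p = 0.0259 and 0.0214); in the same order 0, 0, 5, 3, 2 and 1 fell. Epas1 and Msmo1 held with any 1 library left out. Acaca lost the call without any 1 of orthotopic replicates 1 and 2. Ndufv1 lost the call without any 1 of orthotopic replicates 1 and 2 and subcutaneous replicate 2. Pkm lost the call without any 1 of orthotopic replicates 1 and 2 and subcutaneous replicates 2 and 3. Hspb1 lost the call without any 1 of orthotopic replicates 1 and 2 and subcutaneous replicates 1 and 2.

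Hedgehog ligands rose while some transducers of the signal fell. As background, gastric and gut epithelium secretes hedgehog ligands, which bind Ptch1 on mesenchyme and release Smo. The ligand Shh had 25.5, 20.5 and 7.84 CPM in the orthotopic libraries against 3 subcutaneous counts in all, a ratio of 351 (95% interval 119.6 to 1702). Ihh, the second ligand, had 28.0, 29.4 and 5.11 against 0.282, 0 and 0.0509 CPM (log2 difference 7.50 ± 1.21 and 7.96 ± 0.87, edgeR adjusted p = 0.0118 and 0.00612). Hhip, a target that encodes a decoy receptor, had 5.69, 7.44 and 2.96 against 0.508, 0.320 and 0.153 CPM (log2 difference 4.02 ± 0.64 and 4.30 ± 0.59, edgeR adjusted p = 0.0115 and 0.00856). The ligands were lowest among the orthotopic libraries in replicate 3 and did not overlap with the subcutaneous group. In contrast Smo had 106, 108 and 48.1 against 222, 201 and 185 CPM (log2 difference -1.21 ± 0.32 and -0.93 ± 0.15, edgeR adjusted p = 0.0347 and 0.0117), and the inhibitor Sufu 30.4, 31.6 and 34.5 against 57.7, 84.1 and 69.7 CPM (log2 difference -1.13 ± 0.18 and -1.20 ± 0.21, edgeR adjusted p = 0.0115 and 0.0138). Of 15 tested genes, 3 through the orthotopic libraries alone and 0 through the subcutaneous ones alone, 4 rose, Foxf1 among them, and 4 fell. When orthotopic replicates 1 to 3 and then subcutaneous replicates 1 to 3 were omitted in turn, 4, 2, 5, 5, 4 and 4 rose. In the same order 2, 0, 4, 2, 2 and 2 fell. Shh held with any 1 library left out. Ihh, Hhip and Sufu lost the call without orthotopic replicate 2. Smo lost the call without any 1 of orthotopic replicates 1 and 2 and subcutaneous replicates 1, 2 and 3.

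Several secreted Wnt modulators rose. Sfrp1, a secreted antagonist that binds Wnt ligands, had 337, 299 and 408 CPM in the orthotopic and 28.2, 54.2 and 22.4 CPM in the subcutaneous libraries (log2 difference 3.32 ± 0.37 and 3.17 ± 0.39, edgeR adjusted p = 0.00860 and 0.00730). Dkk2, an antagonist of the Wnt co-receptor, had 30.2, 38.5 and 30.3 against 3.56, 3.47 and 1.99 CPM (log2 difference 3.46 ± 0.32 and 3.50 ± 0.35, edgeR adjusted p = 0.00738 and 0.00595). Rspo3, a niche factor that strengthens Wnt signals, had 5.46, 5.27 and 17 against 0.339, 0.214 and 0.153 CPM (log2 difference 5.26 ± 0.73 and 4.47 ± 0.52, edgeR adjusted p = 0.00982 and 0.00667). All 3 were above every subcutaneous library, and Rspo3 was highest in orthotopic replicate 3. Of 31 tested Wnt genes, 1 (Rspo3) through the orthotopic libraries alone, 7 rose and 2 fell. In the order of omissions given above the count was 4, 3, 9, 8, 5 and 5 for the higher genes and 0, 0, 0, 1, 0 and 1 for the lower ones. A pair of BMP ligands rose too: Bmp4 had 8.17, 11.4 and 9.46 against 1.69, 0.748 and 1.02 CPM (log2 difference 3.06 ± 0.45 and 3.07 ± 0.49, edgeR adjusted p = 0.0105 and 0.0111), and Bmp2 22, 17.3 and 18.5 against 3.56, 5.39 and 2.19 CPM (log2 difference 2.37 ± 0.40 and 2.39 ± 0.44, edgeR adjusted p = 0.0128 and 0.0152). Id1, a direct BMP target, had 107, 127 and 77.2 against 31.9, 19.0 and 11.9 CPM (log2 difference 2.31 ± 0.39 and 2.47 ± 0.41, edgeR adjusted p = 0.0133 and 0.0118), and Grem1, a BMP antagonist of gut mesenchyme, 59.6, 83.6 and 137 against 5.25, 15.6 and 17.9 CPM (log2 difference 2.85 ± 0.54 and 2.46 ± 0.52, edgeR adjusted p = 0.0156 and 0.0206). Of 30 tested BMP genes 7 rose and 1, the signal transducer Smad5, fell (log2 difference -0.81 ± 0.15 and -0.94 ± 0.14, edgeR adjusted p = 0.0153 and 0.00993); in the same order of omissions 4, 0, 7, 6, 2 and 4 rose. Sfrp1, Dkk2 and Rspo3 held with any 1 library left out. Bmp4 and Bmp2 lost the call without orthotopic replicate 2. Id1 and Grem1 lost the call without any 1 of orthotopic replicate 2 and subcutaneous replicate 2. Smad5 lost the call without any 1 of orthotopic replicates 1 and 2.

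**Figure D5:**
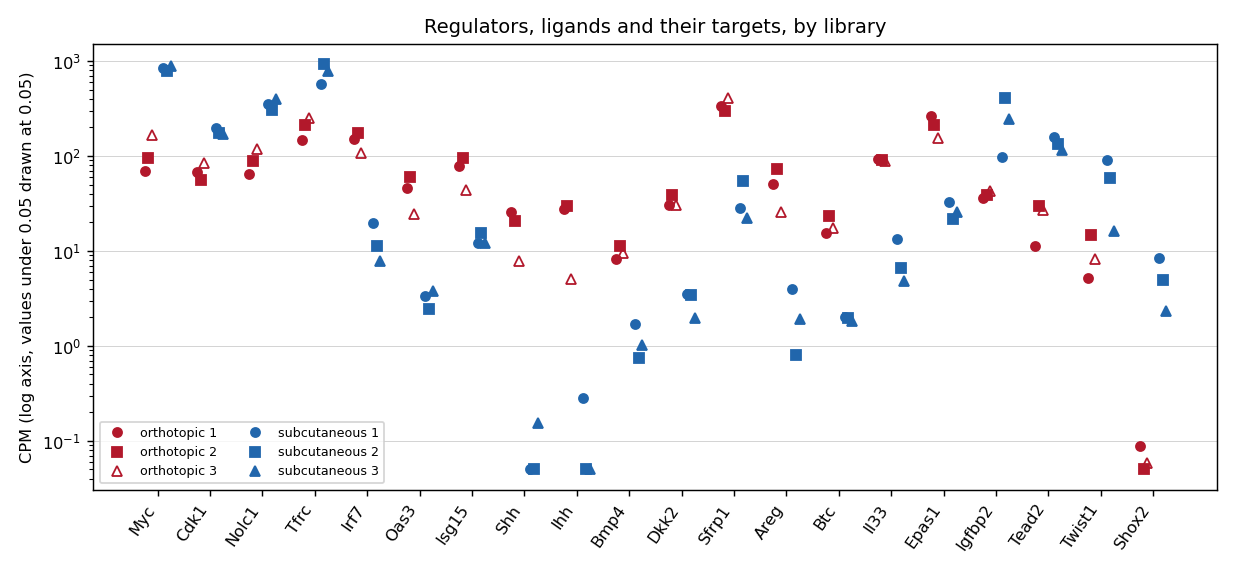
Points give the CPM of 1 library each on a log axis, for regulators and ligands that differ between the sites. Myc lies at 783 to 893 CPM in the subcutaneous and 70.4 to 168 CPM in the orthotopic libraries, and Irf7, Il33 and Shh lie above the subcutaneous values in all 3 orthotopic ones.

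A pair of ligands of the epidermal growth factor receptor and the receptor itself were higher. Btc, betacellulin, had 15.4, 23.4 and 17.3 CPM in the orthotopic and 2.03, 1.98 and 1.83 CPM in the subcutaneous libraries (log2 difference 3.26 ± 0.31 and 3.30 ± 0.34, edgeR adjusted p = 0.00755 and 0.00612). Areg, amphiregulin, had 50.2, 73.8 and 25.9 against 4.01, 0.801 and 1.94 CPM (log2 difference 4.47 ± 0.69 and 4.77 ± 0.65, edgeR adjusted p = 0.0109 and 0.00842). Egfr, their receptor, had 67.6, 65.0 and 97.0 against 31.0, 32.8 and 40.9 CPM (log2 difference 1.13 ± 0.22 and 0.91 ± 0.18, edgeR adjusted p = 0.0161 and 0.0188). Igfbp7, a secreted protein that binds insulin-like growth factors, had 476, 449 and 703 against 135, 161 and 216 CPM (log2 difference 1.67 ± 0.26 and 1.43 ± 0.23, edgeR adjusted p = 0.0112 and 0.0111). Of 40 tested growth factor genes 14 rose and 1 fell. In the order of omissions given above the count was 7, 2, 13, 10, 4 and 7. For the transforming growth factor beta list 5 of 27 tested genes rose, led by Ltbp4, which anchors the latent ligand in matrix, at 202, 216 and 200.5 against 96.9, 86.2 and 68.7 CPM (log2 difference 1.30 ± 0.16 and 1.31 ± 0.18, edgeR adjusted p = 0.00905 and 0.00901); in the same order of omissions 3, 1, 5, 4, 1 and 2 rose. Of 17 tested Notch genes none passed with edgeR; at an unadjusted p under 0.05 there were 2 higher and 0 lower, DESeq2 called 2 and 0, and limma voom 1 and 0. Btc, Igfbp7 and Ltbp4 held with any 1 library left out. Areg lost the call without orthotopic replicate 2. Egfr lost the call without any 1 of orthotopic replicate 2 and subcutaneous replicate 2.

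Tead2, a transcription factor partner of Yap, fell, with 11.2, 30.0 and 27.1 CPM in the orthotopic and 159.7, 133 and 115 CPM in the subcutaneous libraries (log2 difference -2.58 ± 0.39 and -2.73 ± 0.46, edgeR adjusted p = 0.0107 and 0.0125). Of 25 tested Yap and Tead genes 6 rose and 2 fell. In the order of omissions given above the count was 2, 0, 5, 6, 1 and 5 for the higher ones. Some immediate early genes, which respond within minutes to growth factors and stress, were higher. Fos had 113, 94.5 and 74.8 against 19.6, 30.7 and 26.2 CPM (log2 difference 1.88 ± 0.24 and 2.01 ± 0.23, edgeR adjusted p = 0.00905 and 0.00661), Junb 323, 334 and 339 against 124, 141 and 162 CPM (log2 difference 1.22 ± 0.15 and 1.19 ± 0.17, edgeR adjusted p = 0.00872 and 0.00892), and Zfp36, which degrades inflammatory mRNA, 76.0, 70.8 and 74.1 against 26.1, 25.4 and 29.5 CPM (log2 difference 1.45 ± 0.14 and 1.43 ± 0.16, edgeR adjusted p = 0.00755 and 0.00648). These 3 did not overlap between the groups. Egr4 fell, at 0.0888, 0.139 and 0.0581 against 1.47, 1.28 and 1.94 CPM (log2 difference -3.93 ± 0.53 and -3.72 ± 0.63, edgeR adjusted p = 0.00944 and 0.0123). Of 33 tested immediate early genes, 1 (Egr4) through the subcutaneous libraries alone, 8 rose and 1 fell. In the same order of omissions 3, 3, 6, 7, 3 and 6 rose. These genes also respond to the handling of tissue, which the labels do not describe, and its part was not tested. Tead2, Fos, Junb and Zfp36 held with any 1 library left out. Egr4 lost the call without orthotopic replicate 2.

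Several genes of vitamin A metabolism rose. Adh1, an alcohol dehydrogenase that oxidises retinol, had 38.7, 35.0 and 43.7 CPM in the orthotopic and 1.52, 1.07 and 1.27 CPM in the subcutaneous libraries (log2 difference 4.92 ± 0.26 and 4.82 ± 0.29, edgeR adjusted p = 0.00223 and 0.00310). Rbp2, a cellular retinol carrier of gut epithelium, had 24.1, 18.0 and 10.9 against 0.847, 0.374 and 0.917 CPM (log2 difference 4.62 ± 0.54 and 4.86 ± 0.48, edgeR adjusted p = 0.00868 and 0.00590). Rarres1, a gene induced by retinoic acid, had 4.53, 4.76 and 4.41 against 0.282, 0.374 and 0.306 CPM (log2 difference 3.81 ± 0.41 and 3.82 ± 0.45, edgeR adjusted p = 0.00788 and 0.00683). All 3 separated the sites in every library. Crabp2, a retinoic acid carrier common in skin, fell, with 4.84, 7.72 and 4.88 against 61.2, 21.6 and 67.2 CPM (log2 difference -3.10 ± 0.49 and -3.0 ± 0.59, edgeR adjusted p = 0.0111 and 0.0173). Of the 22 genes listed, all tested, 1 (Rarres1) through the orthotopic libraries alone, 10 rose and 1 fell. In the order of omissions given above the count was 5, 4, 10, 6, 4 and 7. Adh1, Rbp2 and Rarres1 held with any 1 library left out. Crabp2 lost the call without orthotopic replicate 2.

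Several surface ligands that restrain lymphocytes were higher. Lgals9, the lectin galectin 9, had 215, 322 and 193 CPM in the orthotopic and 39.0, 22.8 and 24.6 CPM in the subcutaneous libraries (log2 difference 3.08 ± 0.31 and 3.21 ± 0.31, edgeR adjusted p = 0.00756 and 0.00579). Pvrl2, a nectin that binds inhibitory receptors, had 95.1, 98.6 and 97.8 against 28.2, 25.2 and 39.8 CPM (log2 difference 1.64 ± 0.20 and 1.63 ± 0.23, edgeR adjusted p = 0.00872 and 0.00908). Cd274, the ligand PD-L1, had 36.1, 26.3 and 38.3 against 8.58, 7.16 and 14.9 CPM (log2 difference 1.71 ± 0.34 and 1.60 ± 0.38, edgeR adjusted p = 0.0178 and 0.0283). None of the 3 overlapped between sites. Arg1, arginase of suppressive myeloid cells, did, with 837, 448 and 602 against 159.8, 74.1 and 661 CPM (log2 difference 1.08 ± 0.77 and 1.10 ± 0.89, edgeR adjusted p = 0.321 and 0.388). Of 22 tested genes 10 rose and none fell. In the order of omissions given above the count was 3, 3, 9, 6, 3 and 8. For angiogenic factors 6 of 26 tested genes rose, among them Ednra, an endothelin receptor of vessel walls (log2 difference 1.76 ± 0.27 and 1.69 ± 0.30, edgeR adjusted p = 0.0109 and 0.0141), and in the same order of omissions 1, 0, 4, 2, 1 and 2; Vegfa, the main vascular growth factor, did not pass, with 327, 151 and 369 against 119, 168 and 299 CPM (log2 difference 0.53 ± 0.45 and 0.28 ± 0.48, edgeR adjusted p = 0.395 and 0.686). Lgals9 and Pvrl2 held with any 1 library left out. Ednra lost the call without orthotopic replicate 2. Cd274 lost the call without any 1 of orthotopic replicates 1 and 2 and subcutaneous replicate 2.

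Genes shared by epithelia of many kinds differed in part. Krt19 and Krt8, keratins of simple epithelium, had 2423, 2377 and 1047 and 2040.4, 2474 and 1476 CPM in the orthotopic and 330.1, 262 and 808 and 257, 715 and 872 CPM in the subcutaneous libraries (log2 difference 2.06 ± 0.54 and 2.35 ± 0.50, edgeR adjusted p = 0.0346 and 0.0213, and log2 difference 1.70 ± 0.47 and 1.87 ± 0.50, edgeR adjusted p = 0.0400 and 0.0386). Cdh1, E-cadherin, had 826, 1027 and 506 against 105, 298 and 373 CPM and passed only without orthotopic replicate 3 (log2 difference 1.60 ± 0.50 and 1.83 ± 0.51, edgeR adjusted p = 0.0545 and 0.0428). Subcutaneous replicate 1 was the lowest library for Cdh1 and Krt8 and for the summed list of 22 epithelial genes, which gave 10097, 11098 and 6407 CPM in the orthotopic and 1538, 4079 and 5794 CPM in the subcutaneous libraries. Of these 22, 4 rose with edgeR, where DESeq2 called 11 and limma voom 11. In the order of omissions given above the count was 0, 0, 5, 1, 0 and 3. Squamous genes were read at both sites. Krt14, a basal cell keratin, had 1126, 825 and 687 against 192, 1301 and 2826 CPM (log2 difference -0.71 ± 0.82 and -0.57 ± 0.97, edgeR adjusted p = 0.537 and 0.682), and Krt6a, a keratin of stratified epithelium, 784, 898 and 826 against 201, 1129 and 2787 CPM (log2 difference -0.72 ± 0.79 and -0.72 ± 0.95, edgeR adjusted p = 0.523 and 0.600); neither passed. Of 24 tested squamous genes 1, the cornified envelope protein gene Ivl, rose (log2 difference 3.23 ± 0.83 and 3.55 ± 0.81, edgeR adjusted p = 0.0336 and 0.0254). Only Krtdap, tested through the subcutaneous libraries alone, fell (log2 difference -4.10 ± 1.21 and -4.01 ± 1.52, edgeR adjusted p = 0.0484 and 0.0963). In the same order of omissions 0, 0, 2, 0, 0 and 3 rose and 0, 0, 0, 5, 0 and 0 fell. Of 26 epidermal and hair genes listed 8 were tested and none passed with edgeR; 0 had an unadjusted p under 0.05, and DESeq2 and limma voom called 0. Of 18 tested adipocyte genes 4 rose, led by Pparg, a nuclear receptor of fat and gut epithelium, at 34.2, 57.5 and 20.3 against 4.69, 3.53 and 6.06 CPM (log2 difference 2.97 ± 0.45 and 3.26 ± 0.36, edgeR adjusted p = 0.0109 and 0.00615), and in the same order of omissions 2, 1, 6, 4, 1 and 2. Pparg held with any 1 library left out. Krt19 and Ivl lost the call without any 1 of orthotopic replicates 1 and 2 and subcutaneous replicates 1 and 2. Krt8 lost the call without any 1 of orthotopic replicates 1 and 2 and subcutaneous replicates 2 and 3. Krtdap lost the call without any 1 of orthotopic replicates 1, 2 and 3 and subcutaneous replicates 2 and 3.

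Known drivers of cancer were called in a share near that of all tested genes with edgeR, and more often with the other tools. Of 31 tested driver genes 5 rose and 4 fell, where DESeq2 called 9 higher and 7 lower and limma voom 9 and 9, and with orthotopic replicates 1 to 3 and then subcutaneous replicates 1 to 3 left out in turn the count was 4, 1, 9, 5, 2 and 3 for the higher genes and 2, 1, 3, 4, 2 and 2 for the lower ones. Ccne1, cyclin E1, fell beside Myc, with 11.3, 11.3 and 17.9 CPM in the orthotopic and 48.3, 39.3 and 44.7 CPM in the subcutaneous libraries (log2 difference -1.71 ± 0.25 and -1.97 ± 0.21, edgeR adjusted p = 0.0103 and 0.00612). Ctnnb1, beta-catenin, overlapped, with 1073, 1647 and 1089 against 1126, 1338 and 1221 CPM (log2 difference 0.05 ± 0.22 and 0.14 ± 0.24, edgeR adjusted p = 0.888 and 0.698). Among p53 targets, Ccng1, cyclin G1, had 90.0, 84.7 and 95.5 against 55.9, 56.8 and 57.6 CPM (log2 difference 0.66 ± 0.12 and 0.61 ± 0.14, edgeR adjusted p = 0.0148 and 0.0238). Of 25 tested p53 targets 4 rose and 1 fell, and in the same order of omissions 0, 0, 4, 2, 2 and 2 rose. Of 19 tested mesenchymal transition genes 2, Twist1 and Ncam1, fell, in the same order 0, 0, 1, 0, 1 and 1. Ccne1 lost the call without orthotopic replicate 2. Ccng1 lost the call without any 1 of orthotopic replicates 1 and 2 and subcutaneous replicate 2. Ncam1 lost the call without any 1 of orthotopic replicates 1 and 2 and subcutaneous replicates 1 and 3.

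The 12 largest falls, chosen by the same rule as the rises, were muscle, neural and developmental genes at low levels. Shox2, a homeobox factor of limb and trunk mesenchyme, had 0.0888, 0 and 0.0581 CPM in the orthotopic and 8.52, 4.91 and 2.34 CPM in the subcutaneous libraries (3 counts in all in the lower group, ratio 105 subcutaneous over orthotopic, 95% counting interval 35.7 to 514, edgeR adjusted p = 0.0105 and 0.0136). Slitrk5, a neuronal membrane protein, had 0.178, 0.601 and 0.174 against 28.1, 17.1 and 9.47 CPM (log2 difference -5.80 ± 0.74 and -5.54 ± 0.82, edgeR adjusted p = 0.00905 and 0.00951). Kcnt1, a sodium-activated potassium channel, had 0.0888, 0.0924 and 0.174 against 9.31, 3.36 and 3.21 CPM (log2 difference -5.43 ± 0.72 and -5.78 ± 0.87, edgeR adjusted p = 0.00919 and 0.00983). Esx1, a homeobox gene on the X chromosome known from placenta, stood out in 1 library, with 0.400, 0.231 and 0.290 against 139, 5.61 and 6.98 CPM (log2 difference -7.33 ± 1.63 and -7.30 ± 2.10, edgeR adjusted p = 0.0228 and 0.0474). Subcutaneous replicate 1 carried most of the Esx1 signal, and the other 3 genes were spread over all 3 subcutaneous libraries. Prtg, the cell adhesion protein protogenin, had 0.355, 0.231 and 0.174 against 18.5, 7.85 and 1.88 CPM (log2 difference -5.17 ± 0.96 and -4.98 ± 1.16, edgeR adjusted p = 0.0153 and 0.0267), and Rorb, an orphan nuclear receptor, 0.178, 0.231 and 0.0581 against 7.90, 11.5 and 1.07 CPM (log2 difference -5.37 ± 1.05 and -5.03 ± 1.21, edgeR adjusted p = 0.0171 and 0.0287). Htr3a, a serotonin-gated channel, had 0, 0.139 and 0 against 4.97, 15.1 and 3.62 CPM (3 counts in all in the lower group, ratio 161 subcutaneous over orthotopic, 95% counting interval 54.8 to 785, edgeR adjusted p = 0.0138 and 0.0172). Slc6a15, an amino acid transporter of neurons, had 0, 0.185 and 0.174 against 7.79, 12.8 and 1.48 CPM (log2 difference -5.90 ± 1.23 and -6.25 ± 1.51, edgeR adjusted p = 0.0197 and 0.0293). The remaining 4 were the skeletal muscle genes Myh1, Tnnt3, Atp2a1 and Tnnc2. Shox2 and Slitrk5 held with any 1 library left out. Kcnt1 lost the call without orthotopic replicate 2. Tnnc2, Esx1, Prtg and Htr3a lost the call without any 1 of orthotopic replicates 1 and 2. Atp2a1 lost the call without any 1 of orthotopic replicate 2 and subcutaneous replicates 2 and 3. Rorb and Slc6a15 lost the call without any 1 of orthotopic replicates 1 and 2 and subcutaneous replicate 2. Tnnt3 lost the call without any 1 of orthotopic replicates 1 and 2 and subcutaneous replicates 2 and 3.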

How the data were processed

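The 6 tumour RNA libraries were sequenced as paired 150 bp reads. STAR 2.6.0, DESeq2 and mm10 are named per the submitters' processing notes. For the read counter, the annotation and strand, nothing was given in the sources used here. Antisense partners, overlapping genes and near-identical copies (Reg3, H2, Clca, Oas1, Ifit, Saa and Amy families) are uncertain. The authors deposited raw gene counts per library, beside log2 fold changes and p-values of their own comparison. The table held 24421 entries, of which 23104 had an Ensembl identifier, and 26 of 27 symbols turned into dates were restored from it.

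From the counts, edgeR 4.0.16 in R 4.3.3 (TMM scaling, filterByExpr with a count minimum of 10, quasi-likelihood test, Benjamini-Hochberg adjustment, threshold 0.05, 4 residual degrees of freedom) was fitted to the 6 libraries and again without orthotopic replicate 3. A single-gene exact permutation test of 3 against 3 libraries cannot go below 0.1 and was not used. Simulated counts for 14912 genes gave 34 calls, 1 false, and recovered 1.02% of 2-fold and 32.3% of 4-fold changes. The data gave 4204 calls, so these rates cannot be carried over to them. The authors' deposited table gave 3337 genes as higher and 3006 as lower at an adjusted p under 0.05, of 16858 with such a p, and 4172 of the 4204 edgeR calls had the same call there. Alternatives were each library left out, a replicate block, other scaling and filters, DESeq2 1.42.0 and limma 3.58.1.

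The 67 gene lists, the rules and the comparison itself were chosen with earlier results of these data known, and the motile cilia list after its values were seen. Named genes were the 12 largest rises and falls past the threshold with and without orthotopic replicate 3, with groups that did not overlap and at least 5 CPM in the higher group; in each list the 5 smallest adjusted p and the 3 highest levels; the members of the host tissue lists (liver, exocrine pancreas, mesothelium, skeletal muscle, adipocytes, epidermis) and sex-linked genes; and the 10 genes highest and lowest in orthotopic replicate 3. Cxcl13, Isg15, Zeb1, Eif2s3y and Uty were named after their values were seen. Promoter sequences are from RefSeq. A few genes that these rules name are not reported here.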

Additional observations from a re-analysis of the deposited data

How the results depend on the processing

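With 1 library left out at a time, the number of higher genes ran from 288 to 2591 and of lower genes from 99 to 2198, the lowest of each without orthotopic replicate 2 and the highest without orthotopic replicate 3. In the same omissions the members called ran from 7 to 16 for pit cells, 1 to 17 for skeletal muscle, 2 to 11 for smooth muscle, 17 to 37 for the interferon response, 6 to 34 for the cell cycle and 2 to 26 for Myc targets. Higher genes numbered 3347 by DESeq2, 3360 by limma voom, 3235 by DESeq2 and 3723 by limma voom with orthotopic replicate 3 left out as well, the last 2 chosen after seeing the data. Lower genes numbered 3272 by limma voom and 3164 by DESeq2 with that library left out. With a replicate block 948 genes were higher and 829 lower, and the skeletal muscle count was 7. The replicate numbers are only shared numbers, since same-numbered libraries did not deviate together (correlations 0.0293, -0.0491 and -0.0503). Under the filter of 5 CPM in 3 libraries, fewer genes were tested and the skeletal muscle count was 4. The other counts named here stayed within 1.5 times under these settings, under DESeq2 size factors and with no filter. Of the genes named, 1 changed sign with a call: Thy1, at 0.62 and not past the test as reported, was at -0.81 under limma voom with orthotopic replicate 3 left out, and the cause was not tested. Of the other list counts, 28 moved by over 1.5 times and 46 did not under DESeq2, and 25 and 49 under limma voom.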

Other observations

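Lists of some other tissues held few readable genes. Of 3 tested mammary gland genes 1 rose: Cel, a lipase gene that is also on the exocrine pancreas list and stood at 1.24, 1.43 and 29.0 CPM in the orthotopic libraries. Cel lost the call without any 1 of orthotopic replicates 1 and 2 and subcutaneous replicates 1, 2 and 3. Of 3 tested pancreatic islet genes, 2 through the orthotopic libraries alone, 2 rose, Sst and Pdx1, both also on the gastric lists. Of 17 tested neural and Schwann cell genes 1, S100b, rose and 1, Uchl1, fell; with orthotopic replicates 1 to 3 and then subcutaneous replicates 1 to 3 left out in turn 0, 0, 2, 3, 0 and 0 rose and 0, 0, 1, 2, 0 and 0 fell. None of 5 erythroid and platelet genes passed the edgeR test, while 2 had an unadjusted p under 0.05 and DESeq2 and limma voom called 2 each. Of 6 tested sex-linked genes 1 fell.

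Y-linked genes differed among the subcutaneous libraries. Ddx3y, an RNA helicase gene, had 77.2, 78.6 and 91.3 CPM in the orthotopic and 67.4, 15.1 and 109 CPM in the subcutaneous libraries, and Eif2s3y, a translation initiation factor gene, 44.1, 51.3 and 69.6 against 37.7, 5.23 and 97.4 CPM. Uty had 37.8, 3.36 and 43.7 and Kdm5d 32.5, 2.62 and 26.2 CPM in the subcutaneous libraries, so all 4 were lowest in subcutaneous replicate 2. The X-linked Eif2s3x fell in the stomach, with 231, 202 and 253 against 373, 468 and 449 CPM (log2 difference -0.91 ± 0.16 and -1.0 ± 0.18, edgeR adjusted p = 0.0145 and 0.0147). Eif2s3x lost the call without any 1 of orthotopic replicates 1 and 2.

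The calls were spread unequally over the chromosomes. On chromosome 14, 19.3% of 509 tested genes were higher and 3.54% lower, and on chromosome 13, 8.53% of 563 were higher and 17.1% lower. Without orthotopic replicate 3 the shares on chromosome 14 were 20.2% and 6.62%. The median log2 deviation of chromosome 14 genes from the mean of all libraries was 0.13, 0.06 and 0.29 in the orthotopic and -0.27, -0.26 and -0.07 in the subcutaneous libraries. Genes of a chromosome are not independent, and no test was made. Zeb1, a mesenchymal transcription factor gene, had 81.2, 17.5 and 10.2 CPM in the subcutaneous libraries and 20.2, 20.9 and 47.2 CPM in the orthotopic ones, and did not pass the test (log2 difference -0.30 ± 0.79 and -0.83 ± 0.88, edgeR adjusted p = 0.794 and 0.509).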
